A study of Mus musculus with 36 samples.

Results

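RNA from mouse skin wounds of the arm labelled P, taken 2 days after injury, was compared with RNA from unwounded skin. All 5 libraries labelled P and day 2 and all 3 libraries labelled unwounded skin and day 0 entered the comparison, 8 of the 36 libraries of the series, and every gene that passed the low-count filter was tested. The wounds were snap frozen and extracted with TRIzol, and poly(A) RNA was sequenced as stranded libraries, per the labels' protocols. The labels do not spell out P and give no genotype, strain, age, sex or agent for either group, and the unwounded skin carries no arm label, so what the 2 groups share or differ in beyond the wound is not given. They also do not say that replicates came from separate animals, so p-values measure the spread between these samples, which may be technical. P wounds taken 4 days after injury (5 libraries) were used for a further comparison.

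In a skin wound, injured keratinocytes, fibroblasts, vessels and resident immune cells release chemokines and cytokines that draw neutrophils and then monocytes out of the blood, while a fibrin-rich provisional matrix fills the gap. Keratinocytes at the edge later loosen their junctions, change their keratins and migrate, and the inflammatory phase gives way to a phase of cell division and matrix building. Whole-tissue RNA reads all of these cells at once, so fewer cells of a type and less RNA per cell cannot be told apart.

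The libraries held 23418785 to 47377520 counts in the wounds and 19840840 to 58375510 in unwounded skin. Levels are given in CPM, counts per 1000000 after scaling for library composition, in the order of the replicate numbers: wounds 1 to 5, then unwounded skin 1 to 3. Wound replicates 1 and 2 stood apart from replicates 3, 4 and 5: in 43.7% of the tested genes both were above or both below all of the other 3. Mitochondrial transcripts made up 3.10% and 3.12% of counts in replicates 1 and 2 and 4.66% to 5.81% in the others. For the lists described, a count of calls that moved by over 1.5 times with wound replicates 3 to 5 alone is given with that count. Counts with wound replicates 1 and 2 alone are given for some lists only. The marker sums of skin cells were checked against the label: keratinocyte markers (5 genes) summed to 8110 to 15251 CPM in the wounds and 10459 to 17196 CPM in unwounded skin, and fibroblast markers (5 genes) to 1922 to 8226 CPM and 607 to 1290 CPM. Skeletal muscle markers (4 genes) summed to 9912 to 27112 CPM in the wounds and 41327 to 67537 CPM in unwounded skin, so muscle was part of both samples.

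Of 20657 genes tested with edgeR's quasi-likelihood test at a Benjamini-Hochberg adjusted p under 0.05, 4609 (22.3%) were higher in the P day 2 wounds and 3926 (19%) lower. Tested against a change of 2-fold, 1823 (8.83%) were higher and 809 (3.92%) lower. The levels of all 5 wounds lay above all 3 unwounded samples in 23.6% of genes and below them in 22.6%. The median log2 fold change over all tested genes was 0.02. The gene lists described below are read against these shares. The bar chart of list members gives each list's share.

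**Figure D1:**
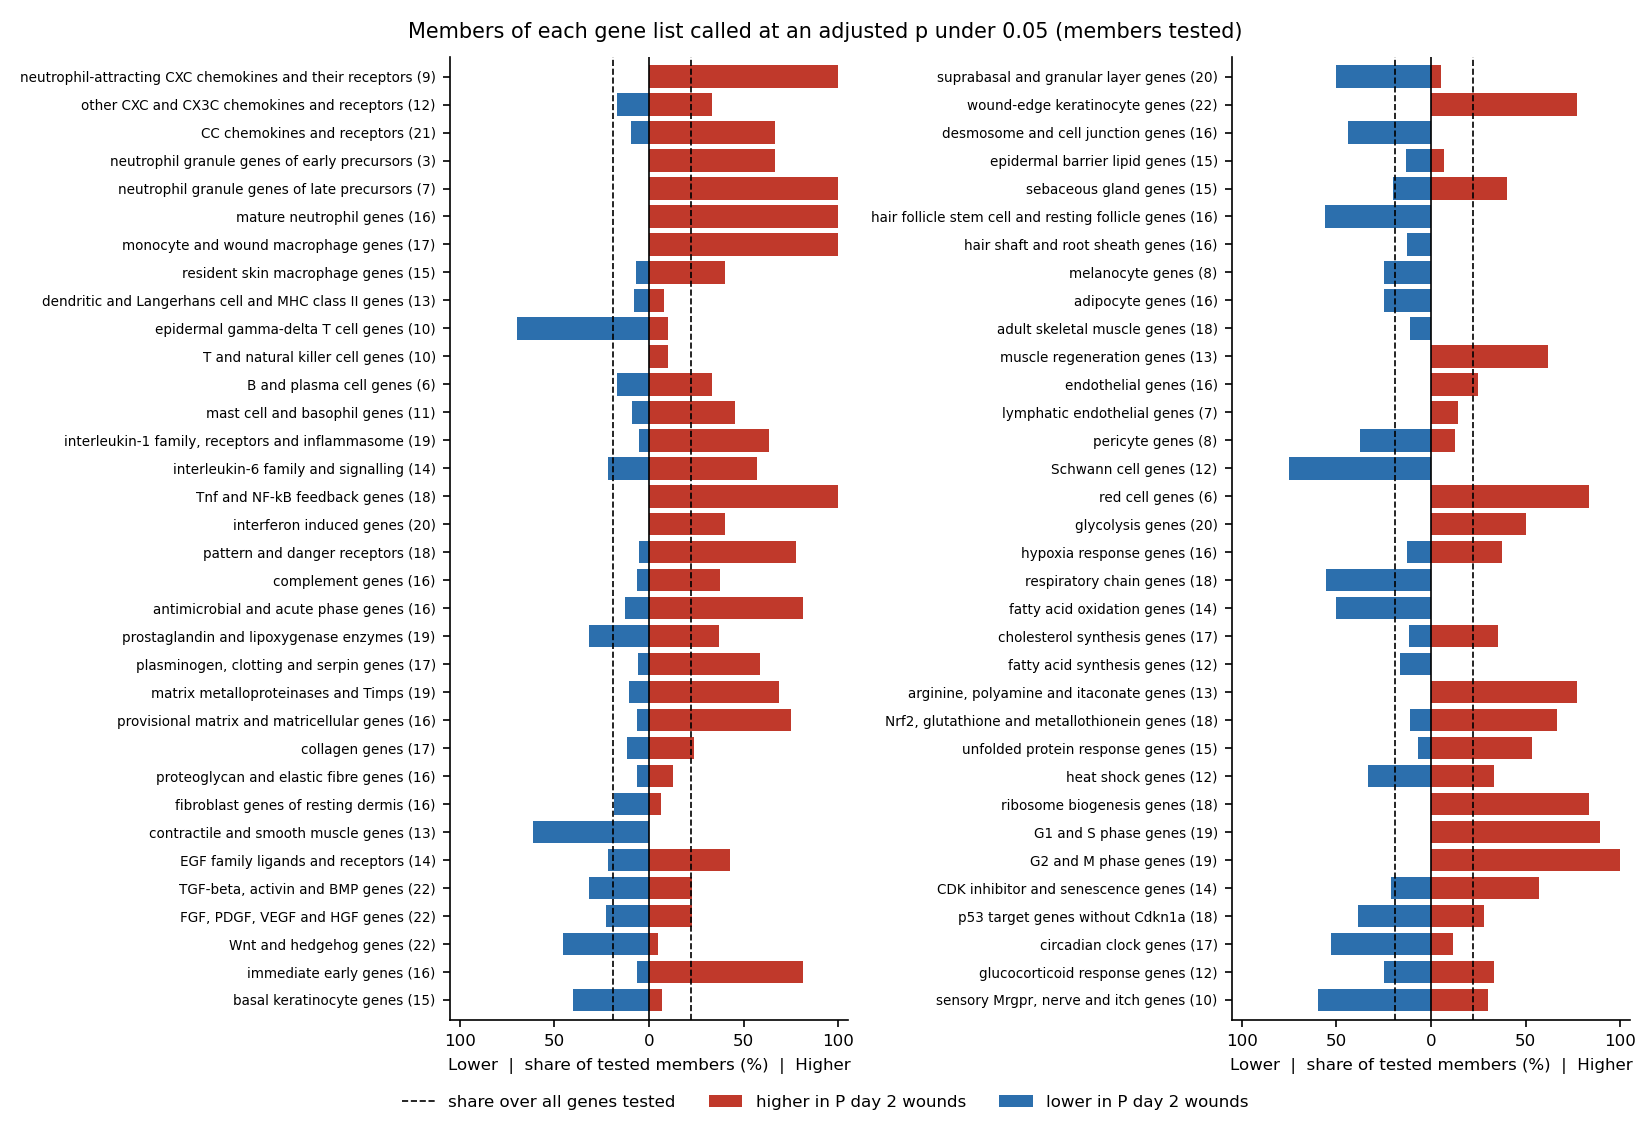
Share of the tested members of each of the 68 gene lists that were higher (right, red) or lower (left, blue) in P day 2 wounds, against unwounded skin, at an adjusted p under 0.05, in percent; dashed lines mark the shares over all genes, 22.3% and 19%. Neutrophil, chemokine and cell cycle lists extend to the right, and Schwann cell, smooth muscle, follicle and clock lists to the left.

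All 9 tested members rose in the list of CXC chemokines that attract neutrophils and their receptors (median log2 fold change 12.14). They were 6 chemokines, 2 of their receptors and the cytokine Csf3. Cxcl1, Cxcl2 and Cxcl3, ligands of the neutrophil receptor Cxcr2, lie in one cluster on chromosome 5, and their promoters carry a match to the kappa B consensus, the motif bound by NF-kB. They are shown because their transcripts rose together, next to that of Nfkbia, the NF-kB inhibitor that NF-kB itself induces. The sequences are the 150 bases before each start, from RefSeq on GRCm38.p6, with matches to the kappa B consensus on either strand in capitals: Cxcl1 at chr5:90891095-90891244 (plus strand), Cxcl2 at chr5:90903749-90903898 (plus), Cxcl3 at chr5:90785951-90786100 (plus) and Nfkbia at chr12:55492648-55492797 (minus).
Cxcl1: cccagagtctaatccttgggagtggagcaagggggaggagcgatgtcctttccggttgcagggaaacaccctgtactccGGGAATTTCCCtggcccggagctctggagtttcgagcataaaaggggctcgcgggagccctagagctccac
Cxcl2: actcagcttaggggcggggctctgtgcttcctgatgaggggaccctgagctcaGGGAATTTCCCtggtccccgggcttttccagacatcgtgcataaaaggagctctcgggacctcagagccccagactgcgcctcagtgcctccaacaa
Cxcl3: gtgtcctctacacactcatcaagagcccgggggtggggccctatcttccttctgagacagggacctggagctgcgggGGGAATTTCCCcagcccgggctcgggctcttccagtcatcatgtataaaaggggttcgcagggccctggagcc
Nfkbia: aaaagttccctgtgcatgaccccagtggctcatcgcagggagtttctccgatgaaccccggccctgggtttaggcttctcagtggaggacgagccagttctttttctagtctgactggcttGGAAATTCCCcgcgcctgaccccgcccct
The overlapping matches begin 71 and 70 bases before the start in Cxcl1, 97 and 96 in Cxcl2 and 73 and 72 in Cxcl3, and the match in Nfkbia begins 29 bases before it. Over 250 bases before the start, 3 of 7 windows of this list and 5 of 17 windows of the Tnf and NF-kB list held a match, and 3.9% of all 32851 promoter windows did. A gene can have several windows, and the 5 windows were of 3 of 14 genes. These shares describe the lists, and a link to the rises was not tested.

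Cxcl2 was measured at 1448, 1533, 1960.3, 1174 and 1026 CPM in the wounds and 0.0374, 0.0199 and 0 CPM in unwounded skin. Every wound was far above every unwounded library, where 2 counts were found in all. The ratio of the pooled levels was 67294-fold, with a 95% counting interval of 18629 to 555674, which covers counting error only (adjusted p = 2.83e-04). Cxcl3 was measured at 243, 341, 316, 120.2 and 190.2 CPM in the wounds and 0.0374, 0 and 0 CPM in unwounded skin, a ratio of 23301-fold, with a 95% counting interval of 4182 to 920358 (adjusted p = 2.33e-04). Cxcl1 was measured at 28.02, 28.8, 27.6, 31.6 and 22.2 CPM in the wounds and 0.112, 0.319 and 0.367 CPM in unwounded skin. Cxcl1 rose by 6.68 ± 1.42 (SE) on the log2 scale (adjusted p = 3.38e-04). Its 5 wound values were close together, and no groups overlapped in these genes. Cxcr2, the receptor, was measured at 156, 82.1, 168, 89.6 and 76.5 CPM in the wounds and 0.0748, 0 and 0 CPM in unwounded skin, a ratio of 5389-fold, with a 95% counting interval of 1492 to 44501 (adjusted p = 3.02e-05). Ppbp, a chemokine stored in platelets, was measured at 29.3, 36.2, 45.2, 12.97 and 38.2 CPM in the wounds and 0.0748, 0.419 and 0.105 CPM in unwounded skin. The log2 Ppbp change was 7.13 ± 1.42 (SE) (adjusted p = 1.58e-04). Csf3, the cytokine that releases neutrophils from bone marrow, was measured at 90.3, 87.4, 115, 99.3 and 108 CPM in the wounds and 0.0374, 0 and 0 CPM in unwounded skin, a ratio of 9364-fold, with a 95% counting interval of 1680.5 to 369895 (adjusted p = 4.66e-05). Its receptor Csf3r rose with it (log2 fold change 7.89 ± 1.38 (SE), adjusted p = 3.05e-05).

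**Figure D2:**
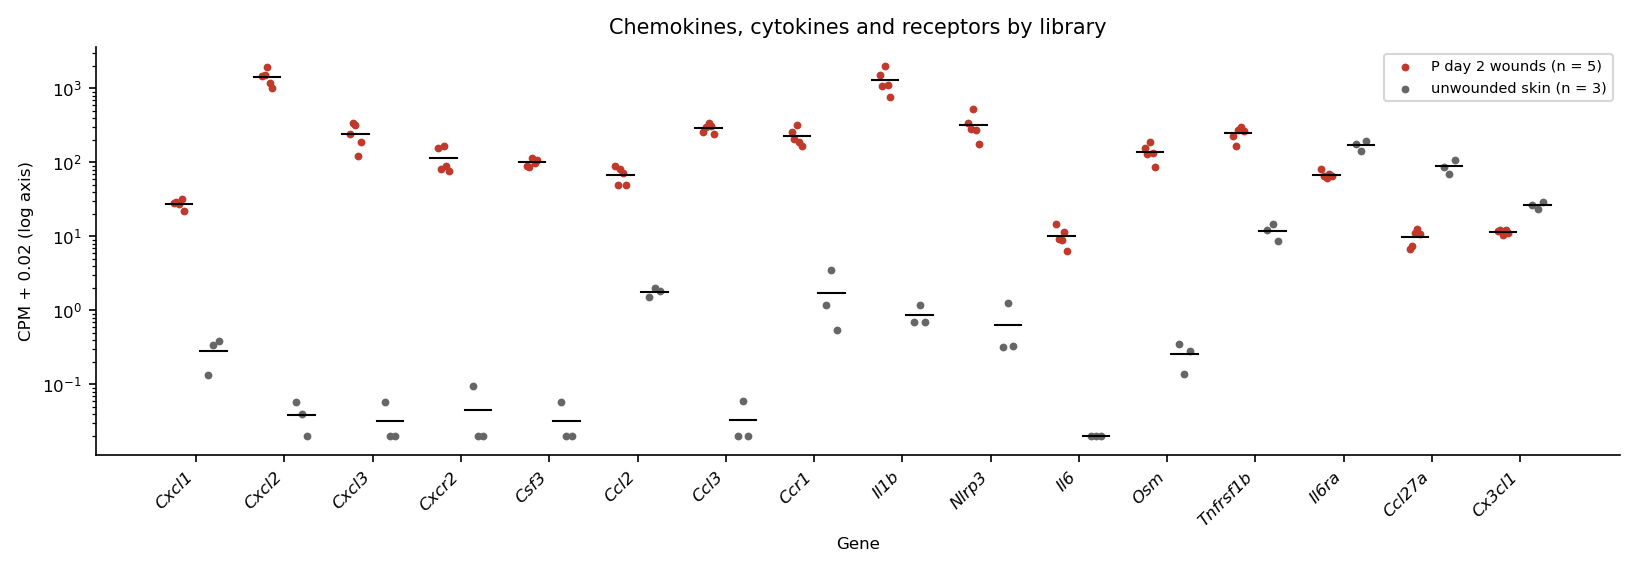
Level per library, log axis of CPM + 0.02, of chemokines, cytokines and receptors in P day 2 wounds (red, 5 libraries) and unwounded skin (grey, 3 libraries); short bars are group means. Cxcl2, Il1b and Ccl3 lie far above every unwounded library in every wound, while Ccl27a and Cx3cl1 are lower in every wound.

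Among 21 tested CC chemokines and receptors, 14 rose and 2 fell (median log2 fold change 3.57). The count of 2 became 1 without P day 2 replicate 1, 3 or 5 or unwounded replicate 1 or 3, and 1 with replicates 3 to 5 alone. Ccl3 and Ccl4, made by activated neutrophils and macrophages, were among those that rose: Ccl3 was measured at 254, 299, 344, 310.0 and 243 CPM in the wounds and 0, 0.0399 and 0 CPM in unwounded skin, a ratio of 13654-fold, with a 95% counting interval of 3779.5 to 112744 (adjusted p = 3.43e-05). The monocyte attractant Ccl2 stood at 89.1, 49.98, 82.0, 71.7 and 49.3 CPM in the wounds and 1.495, 1.97 and 1.83 CPM in unwounded skin (log2 fold change 5.27 ± 0.85 (SE), adjusted p = 1.07e-05). Its near relative Ccl7 rose to a like degree (log2 fold change 5.05 ± 0.82 (SE), adjusted p = 1.22e-05). The receptor Ccr1 rose as well, from 1.16, 3.45 and 0.524 CPM in unwounded skin to 258, 209.8, 323, 189 and 168 CPM in the wounds (log2 fold change 7.0 ± 1.20 (SE), adjusted p = 2.47e-05). Chemokines of resting skin went the other way. Ccl27a, a keratinocyte chemokine for skin-homing T cells, was measured at 6.72, 7.29, 11.2, 12.6 and 10.7 CPM in the wounds and 87.4, 69.8 and 107 CPM in unwounded skin. Ccl27a fell by 3.18 ± 0.49 (SE) on the log2 scale (adjusted p = 6.07e-06). The groups did not overlap. Cx3cl1, the membrane-bound ligand of Cx3cr1, was measured at 11.7, 12.3, 10.5, 12.2 and 11.3 CPM in the wounds and 26.6, 23.3 and 29.04 CPM in unwounded skin. The log2 Cx3cl1 change was -1.18 ± 0.19 (SE) (adjusted p = 1.40e-05). Ccr4, a chemokine receptor of skin-homing T cells that is outside this list, was also lower in every wound, at 0.995, 1.13, 0.508, 0.387 and 0.837 CPM in the wounds and 18.8, 18.7 and 26.1 CPM in unwounded skin (log2 fold change -4.76 ± 0.69 (SE), adjusted p = 2.39e-06). The T-cell markers (4 genes) summed to 4.49 to 12.0 CPM in the wounds and 13.5 to 29.6 CPM in unwounded skin. Of these markers Cd3e and Trdc fell (log2 fold change -2.71 and -1.75), and Cd3d and Trac were not called (-0.26 and 0.13). In the list of T and natural killer cell genes 1 of 10 tested members rose and 9 were not called. The part of T cells in the falls above was not tested.

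The 5 neutrophil markers were near 0 in unwounded skin, where they summed to 0.577 to 2.43 CPM, against 4688 to 9054 CPM in the wounds. All 16 mature neutrophil genes rose (median log2 fold change 11.37, or 11.07 with the 3 genes at 0 counts in unwounded skin set to their bound), and so did all 7 genes in the list of late granule precursors (median 7.5). That list also holds the receptor gene Ltb4r1 and the phagocyte oxidase gene Cybb, so its counts may not be of granule precursor genes alone. The smallest rise among the mature neutrophil genes was that of Il1r2, whose unwounded levels were well above 0 and are given with the interleukin-1 family. Granule genes that neutrophils transcribe in bone marrow were among the 7: Ltf, lactoferrin, was measured at 4.52, 2.01, 2.91, 7.35 and 4.84 CPM in the wounds and 0, 0.0399 and 0 CPM in unwounded skin, a ratio of 207-fold, with a 95% counting interval of 57.0 to 1709 (adjusted p = 0.00178). Ngp, another granule gene, had no count in unwounded skin and was measured at 34.4, 48.6, 65.4, 45.6 and 53.6 CPM in the wounds, at least 1584-fold higher. Among all genes outside the lists, those with the largest rise included Ly6g, the neutrophil surface marker, at 18.5, 15.6, 29.1, 22.2 and 14.7 CPM in the wounds, at least 640.1-fold higher. Also without a count in unwounded skin were Treml2, a myeloid surface receptor, at 23.7, 14.5, 30.7, 20.4 and 21.7 CPM in the wounds and at least 709.8-fold higher, and Prok2, a myeloid chemoattractant, at 11.7, 10.2, 10.9, 8.30 and 7.29 CPM and at least 310.1-fold higher. Olfm4, a neutrophil granule gene, was measured at 17.8, 14.7, 12.2, 12.4 and 6.98 CPM in the wounds and was at least 410.0-fold higher. Stfa2l1, a stefin, showed the largest bound of the genes chosen this way, at least 6239-fold, with 212, 181, 311, 148 and 122 CPM in the wounds. The same rule of size named Cstdc4, Mrgpra2b, Gm18445, Csta3, Gm5150, Sirpb1b and Ankrd66, all without a count in unwounded skin, with bounds of at least 4861-fold, 744-fold, 639-fold, 484-fold, 455-fold, 433-fold and 322-fold higher. Stefin, Mrgpr, Skint, Lce1, serum amyloid and globin genes have near-identical copies, and counting could divide reads between them, so values of single members are uncertain.

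All 17 tested monocyte and wound macrophage genes rose (median log2 fold change 5.28). The list also holds Vcan, Thbs1, Spp1 and Fn1, given again with the provisional matrix, and F10, given with the clotting genes. Its count and median may not be of monocytes and macrophages alone. Cd14, a co-receptor for bacterial lipopolysaccharide, was measured at 1701, 1255, 2497, 1531 and 1039.6 CPM in the wounds and 3.25, 4.33 and 3.41 CPM in unwounded skin. Cd14 rose by 8.77 ± 1.26 (SE) on the log2 scale (adjusted p = 2.00e-06). Ly6c2, a marker of blood monocytes, stood at 33.2, 16.6, 41.9, 22.9 and 27.4 CPM in the wounds and 0.0748, 0.299 and 0.157 CPM in unwounded skin. The log2 Ly6c2 change was 7.17 ± 1.03 (SE) (adjusted p = 2.12e-06). Trem2, a lipid-sensing receptor of macrophages, stood at 50.6, 32.5, 34.1, 54.9 and 49.2 CPM in the wounds and 0.561, 0.898 and 0.367 CPM in unwounded skin (log2 fold change 6.10 ± 0.74 (SE), adjusted p = 1.57e-07). In these 3 genes every wound was above every unwounded library. The list of resident skin macrophages was split, with 6 of 15 higher and 1 lower (median 1.24). The count of 6 became 2 without unwounded replicate 1 or 3, and with replicates 3 to 5 alone 3 rose and 2 fell. Retnla, which marks macrophages exposed to interleukin-4, was the member that fell, at 9.99, 16.4, 4.39, 4.22 and 3.81 CPM in the wounds and 122, 163 and 56.6 CPM in unwounded skin. Retnla fell by 3.87 ± 1.07 (SE) on the log2 scale (adjusted p = 0.00409). C1qb, a chain of complement C1q made by tissue macrophages, rose, at 205, 228, 72.4, 153 and 141 CPM in the wounds and 29.4, 49.3 and 11.4 CPM in unwounded skin. The log2 C1qb change was 2.41 ± 0.68 (SE) (adjusted p = 0.00494).

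In the interleukin-1 family, which signals cell damage, 12 of 19 tested genes rose and 1 fell (median log2 fold change 1.78). The count of 1 became 0 without P day 2 replicate 3, 4 or 5 or unwounded replicate 1 or 3. Il1b was measured at 1496, 1063, 2035, 1106 and 754 CPM in the wounds and 0.673, 1.16 and 0.681 CPM in unwounded skin (log2 fold change 10.55 ± 1.91 (SE), adjusted p = 4.87e-05). The sensor Nlrp3, which starts inflammasome assembly, was measured at 338, 286, 531, 277 and 179 CPM in the wounds and 0.299, 1.26 and 0.315 CPM in unwounded skin. Nlrp3 rose by 8.89 ± 1.56 (SE) on the log2 scale (adjusted p = 3.40e-05). Further along the same pathway, the pore-forming Gsdmd stood at 54.5, 44.5, 48.4, 61.1 and 48.0 CPM in the wounds and 9.53, 12.1 and 9.12 CPM in unwounded skin. The log2 Gsdmd change was 2.32 ± 0.39 (SE) (adjusted p = 1.66e-05). The caspase Casp4 stood at 43.8, 28.2, 36.1, 38.9 and 31.7 CPM in the wounds and 10.2, 8.86 and 12.2 CPM in unwounded skin (log2 fold change 1.78 ± 0.42 (SE), adjusted p = 0.00113). All 4 lay above unwounded skin in every wound. The adaptor Pycard, in contrast, was not called, at 76.3, 67.1, 73.6, 64.7 and 64.9 CPM in the wounds and 91.0, 74.0 and 108 CPM in unwounded skin (log2 fold change -0.39 ± 0.22 (SE), adjusted p = 0.159), and its groups overlapped. The caspase Casp1 was not called with replicates 3 to 5 alone or 1 and 2 alone (log2 fold change -0.11 and 0.36, adjusted p = 0.809 and 0.479). Neither was the family member Il18 (log2 fold change -0.70 and 0.25, adjusted p = 0.262 and 0.772). Inhibitors of interleukin-1 rose. Il1rn, the receptor antagonist, was measured at 510.3, 316, 534, 479.9 and 412 CPM in the wounds and 76.3, 55.9 and 88.4 CPM in unwounded skin. Il1rn rose by 2.61 ± 0.58 (SE) on the log2 scale (adjusted p = 5.82e-04). The decoy receptor Il1r2 stood at 202, 159, 335, 226 and 146 CPM in the wounds and 69.6, 62.0 and 87.8 CPM in unwounded skin. The log2 Il1r2 change was 1.55 ± 0.46 (SE) (adjusted p = 0.00716). Il36g, an epidermal family member, rose (log2 fold change 2.90 ± 0.62 (SE), adjusted p = 3.71e-04). The rise also held for Il1rl1, the receptor of interleukin-33 (log2 fold change 4.55 ± 1.20 (SE), adjusted p = 0.00276).

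In the interleukin-6 family several ligands rose and the receptor Il6ra fell. Of its 14 tested genes, 8 rose and 3 fell (median log2 fold change 1.52), against 22.3% and 19% of all genes. The share of falls was thus near that of all genes. Il6 (gene ENSMUSG00000025746, GRCm39 chromosome 5, 30218112 to 30224979) had no count in unwounded skin and was measured at 14.8, 9.16, 8.92, 11.3 and 6.32 CPM in the wounds, at least 323-fold higher (adjusted p = 3.23e-06). Bounds set a group without counts to 3 counts over its libraries. Osm, oncostatin M, was measured at 157, 128, 190.2, 135 and 85.4 CPM in the wounds and 0.336, 0.120 and 0.262 CPM in unwounded skin (log2 fold change 9.27 ± 1.42 (SE), adjusted p = 5.30e-06). Lif stood at 11.3, 12.3, 14.1, 13.9 and 9.52 CPM in the wounds and 1.94, 3.87 and 2.41 CPM in unwounded skin (log2 fold change 2.14 ± 0.45 (SE), adjusted p = 2.86e-04). Clcf1 stood at 89.3, 38.0, 62.1, 50.4 and 48.7 CPM in the wounds and 7.51, 9.79 and 9.59 CPM in unwounded skin (log2 fold change 2.69 ± 0.31 (SE), adjusted p = 7.62e-08). Each of these ligands was above unwounded skin in every wound. On the receptor side, Il6ra was measured at 80.1, 64.8, 60.9, 69.8 and 65.6 CPM in the wounds and 176, 140.5 and 192 CPM in unwounded skin (log2 fold change -1.31 ± 0.37 (SE), adjusted p = 0.00484). It lay below unwounded skin in every wound. The shared receptor chain Il6st was not called, at 387, 480.3, 237, 275 and 309 CPM in the wounds and 249.6, 332 and 210.1 CPM in unwounded skin (log2 fold change 0.36 ± 0.31 (SE), adjusted p = 0.379), nor was Osmr (log2 fold change 0.34 ± 0.24 (SE), adjusted p = 0.258). Among the targets, the feedback inhibitor Socs3 rose from 69.0, 50.2 and 73.6 CPM to 341, 246, 323, 312 and 247 CPM (log2 fold change 2.19 ± 0.36 (SE), adjusted p = 1.42e-05). The NF-kB partner Bcl3 rose from 5.46, 7.001 and 5.71 CPM to 104, 59.6, 75.4, 107 and 74.6 CPM (log2 fold change 3.79 ± 0.42 (SE), adjusted p = 3.46e-08). Stat3, the transcription factor of the pathway, rose less (log2 fold change 0.89 ± 0.17 (SE), adjusted p = 1.01e-04).

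**Figure D3:**
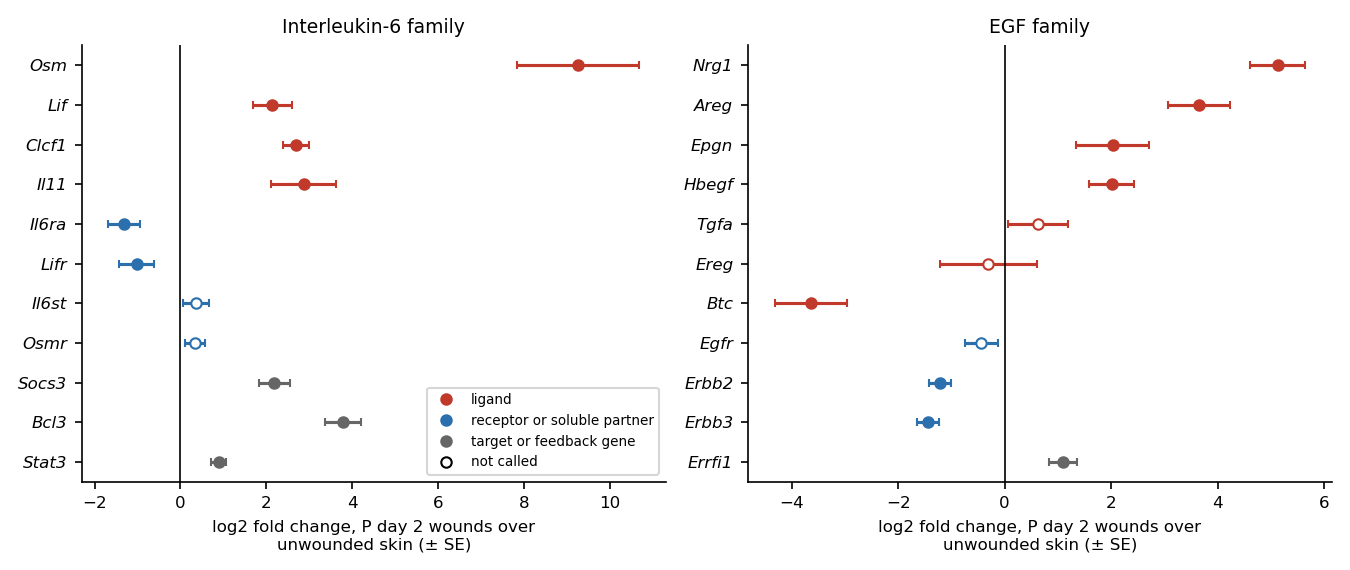
Log2 fold change of P day 2 wounds over unwounded skin with its standard error, for ligands (red), receptors (blue) and targets or feedback genes (grey) of the interleukin-6 and EGF families; filled points passed an adjusted p of 0.05 and open points did not. The called ligands lie right of 0 except Btc, and the called receptors lie left of it; Il6, with no count in unwounded skin, is not plotted.

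All 18 tested Tnf and NF-kB feedback genes rose (median log2 fold change 1.95). The receptor Tnfrsf1b was measured at 229, 165, 277, 301 and 265 CPM in the wounds and 12.04, 14.6 and 8.60 CPM in unwounded skin. The log2 Tnfrsf1b change was 4.39 ± 0.66 (SE) (adjusted p = 3.79e-06). Inhibitors that NF-kB induces rose beside it: Tnfaip3 was measured at 89.0, 73.4, 133, 103 and 84.7 CPM in the wounds and 22.9, 18.99 and 30.8 CPM in unwounded skin (log2 fold change 2.0 ± 0.41 (SE), adjusted p = 2.33e-04). Nfkbia stood at 336, 267, 416, 411 and 302 CPM in the wounds and 109, 77.2 and 142 CPM in unwounded skin (log2 fold change 1.66 ± 0.37 (SE), adjusted p = 5.80e-04). Nfkb2 and Relb, which form the noncanonical NF-kB dimer, rose by 1.72 and 1.53 on the log2 scale (adjusted p = 4.30e-05 and 2.34e-04). Leukocytes leave vessels by adhesion molecules, among which Selp, P-selectin, was measured at 59.0, 39.1, 34.1, 26.6 and 28.9 CPM in the wounds and 2.73, 3.11 and 1.47 CPM in unwounded skin. The log2 Selp change was 3.93 ± 0.72 (SE) (adjusted p = 5.85e-05). Icam1 stood at 108, 72.6, 84.4, 124 and 88.5 CPM in the wounds and 28.1, 26.1 and 28.7 CPM in unwounded skin (log2 fold change 1.79 ± 0.29 (SE), adjusted p = 9.32e-06). Ptx3, a pentraxin released by fibroblasts and myeloid cells, stood at 131, 107, 25.4, 43.8 and 34.2 CPM in the wounds and 3.44, 10.4 and 3.20 CPM in unwounded skin. Ptx3 rose by 3.58 ± 0.90 (SE) on the log2 scale (adjusted p = 0.00183). Replicates 1 and 2 were above the other 3.

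Receptors for microbial and damage signals rose in 14 of 18 tested genes and fell in 1 (median log2 fold change 3.38). The count of 1 became 0 without unwounded replicate 3. Tlr13, which senses bacterial ribosomal RNA, was measured at 93.5, 83.9, 135, 104 and 90.3 CPM in the wounds and 0.187, 0.718 and 0.0524 CPM in unwounded skin. The log2 Tlr13 change was 8.06 ± 0.96 (SE) (adjusted p = 1.15e-07). Tlr2 stood at 136, 86.5, 196, 175 and 126 CPM in the wounds and 3.81, 3.91 and 3.09 CPM in unwounded skin (log2 fold change 5.31 ± 0.71 (SE), adjusted p = 7.57e-07). Its partners Tlr1 and Tlr6 rose by 5.90 and 6.13 on the log2 scale (adjusted p = 8.12e-09 and 3.90e-08). Tlr4, the receptor of bacterial lipopolysaccharide, rose less (log2 fold change 3.12 ± 0.49 (SE), adjusted p = 7.00e-06), and so did the adaptor Myd88 (log2 fold change 1.55 ± 0.22 (SE), adjusted p = 1.10e-06). These receptors are found on myeloid cells, whose marker sums rose as given above, with macrophage markers (5 genes) at 548 to 831 CPM in the wounds and 18.6 to 40.0 CPM in unwounded skin; their part in the rises was not tested. Clec4e, the C-type lectin that senses dead cells and mycobacterial lipid, was measured at 401, 275, 442, 332 and 308 CPM in the wounds and 0, 0.0399 and 0 CPM in unwounded skin, a ratio of 16563-fold, with a 95% counting interval of 4585 to 136768 (adjusted p = 4.64e-05). Of 16 complement genes 6 rose and 1 fell (median 1.54). The count of 1 became 0 without unwounded replicate 2. The anaphylatoxin receptors C5ar1 and C3ar1 were measured at 171, 100.03, 209.7, 195 and 141 CPM and 138, 91.5, 105.3, 130.4 and 99.8 CPM in the wounds and at 2.77, 7.90 and 0.839 CPM and 2.69, 4.29 and 1.21 CPM in unwounded skin, rises of 5.37 ± 1.02 (SE) and 5.34 ± 0.80 (SE) on the log2 scale (adjusted p = 9.53e-05 and 3.87e-06).

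Of 16 antimicrobial and acute phase genes 13 rose and 2 fell (median log2 fold change 5.99, or 4.17 with 3 genes at their bound). The count of 2 became 1 without P day 2 replicate 3, 4 or 5 or unwounded replicate 1, 2 or 3. With wound replicates 3 to 5 alone, 9 rose and 3 fell. Saa3, a serum amyloid made in inflamed tissue, was measured at 538, 1254, 251, 699 and 261 CPM in the wounds and 0.0374, 0.0199 and 0 CPM in unwounded skin, a ratio of 31552-fold, with a 95% counting interval of 8734 to 260536 (adjusted p = 2.78e-05). Hp, haptoglobin, which binds free haemoglobin, stood at 1315, 864, 696, 1394 and 789 CPM in the wounds and 139, 95.6 and 61.5 CPM in unwounded skin. Hp rose by 3.36 ± 0.63 (SE) on the log2 scale (adjusted p = 8.25e-05). Chil1, a chitinase-like protein of neutrophils and macrophages, was measured at 116, 109, 148, 144 and 184 CPM in the wounds and 1.64, 2.67 and 0.944 CPM in unwounded skin. The log2 Chil1 change was 6.28 ± 0.47 (SE) (adjusted p = 2.57e-11). Orm1 is a serum acute phase protein too, and it fell: it was measured at 16.9, 18.3, 8.69, 11.2 and 18.7 CPM in the wounds and 85.3, 81.2 and 90.9 CPM in unwounded skin (log2 fold change -2.54 ± 0.50 (SE), adjusted p = 1.57e-04).

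Enzymes that make and break down lipid mediators moved in both directions. Of 19 tested prostaglandin and lipoxygenase genes, 7 rose and 6 fell (median log2 fold change 0.17). The count of 7 became 3 without unwounded replicate 3 and 4 without unwounded replicate 1 and the count of 6 became 3 without unwounded replicate 3. Ptgs2, the inducible cyclooxygenase, was measured at 208, 241, 204, 73.2 and 69.3 CPM in the wounds and 1.46, 1.68 and 1.26 CPM in unwounded skin. Ptgs2 rose by 6.75 ± 1.39 (SE) on the log2 scale (adjusted p = 2.49e-04). Alox5ap, the leukocyte protein needed for leukotriene synthesis, stood at 261, 196, 268, 266 and 205 CPM in the wounds and 15.2, 16.9 and 8.91 CPM in unwounded skin. The log2 Alox5ap change was 4.13 ± 0.62 (SE) (adjusted p = 4.22e-06). Against these rises, Hpgd, which inactivates prostaglandins, was measured at 8.37, 9.28, 4.20, 2.77 and 4.28 CPM in the wounds and 18.1, 16.6 and 17.5 CPM in unwounded skin (log2 fold change -1.58 ± 0.34 (SE), adjusted p = 3.60e-04). The epidermal lipoxygenases Alox12 and Aloxe3, of which Aloxe3 serves the skin's water barrier, fell as well: Aloxe3 was measured at 26.3, 16.1, 10.4, 8.12 and 5.08 CPM in the wounds and 86.0, 63.4 and 98.7 CPM in unwounded skin. Aloxe3 fell by 2.64 ± 0.44 (SE) on the log2 scale (adjusted p = 1.49e-05). Alox12 changed by -2.02 ± 0.52 (SE) on the log2 scale (adjusted p = 0.00231).

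Interferon-induced genes rose in 8 of 20 tested members, and 12 were not called (median log2 fold change 0.90). Their wound levels were uneven. Isg15 was measured at 59.1, 17.9, 60.0, 28.7 and 42.9 CPM in the wounds and 4.52, 6.54 and 5.71 CPM in unwounded skin. The log2 Isg15 change was 2.89 ± 0.64 (SE) (adjusted p = 5.07e-04). Mx1 stood at 31.3, 8.93, 19.1, 6.90 and 26.1 CPM in the wounds and 1.91, 2.25 and 1.68 CPM in unwounded skin (log2 fold change 3.24 ± 0.88 (SE), adjusted p = 0.00386). Cxcl10, an interferon-induced chemokine, stood at 32.1, 5.85, 19.4, 7.67 and 25.9 CPM in the wounds and 1.20, 2.73 and 2.57 CPM in unwounded skin. Cxcl10 rose by 3.06 ± 0.75 (SE) on the log2 scale (adjusted p = 0.00147). In all 3 genes replicates 1, 3 and 5 were above replicates 2 and 4, and all wounds were above unwounded skin.

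In the list of arginine, polyamine and itaconate genes 10 of 13 rose and 3 were not called (median log2 fold change 2.11). Acod1, which makes itaconate, was measured at 476, 408, 655, 367 and 324 CPM in the wounds and 0, 0.0598 and 0 CPM in unwounded skin, a ratio of 13841-fold, with a 95% counting interval of 4736 to 67117 (adjusted p = 2.01e-04). The arginase Arg2 stood at 73.1, 62.1, 99.1, 77.1 and 60.2 CPM in the wounds and 2.84, 2.71 and 3.15 CPM in unwounded skin. The log2 Arg2 change was 4.68 ± 0.48 (SE) (adjusted p = 7.38e-09). Nos2, which makes nitric oxide from arginine, was measured at 37.3, 127, 62.0, 43.3 and 75.0 CPM in the wounds and 3.25, 3.91 and 3.25 CPM in unwounded skin (log2 fold change 4.30 ± 1.09 (SE), adjusted p = 0.00191). Replicate 2 was the highest. Enzymes of polyamine synthesis and of polyamine breakdown rose: Odc1, the rate-limiting enzyme of synthesis, rose from 67.4, 76.8 and 64.1 CPM to 376, 233, 269, 269 and 305 CPM (log2 fold change 2.06 ± 0.34 (SE), adjusted p = 1.51e-05). Srm rose by 1.69 ± 0.14 (SE) on the log2 scale, Smox by 3.0 ± 0.36 (SE) and Sat1 by 2.11 ± 0.31 (SE) (adjusted p = 2.21e-10, 1.43e-07 and 2.67e-06).

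Of 20 glycolysis genes 10 rose and 10 were not called (median log2 fold change 0.76). Slc2a3, a glucose transporter of leukocytes and neurons, was measured at 246, 328, 413, 161 and 111 CPM in the wounds and 5.05, 3.97 and 4.87 CPM in unwounded skin. Slc2a3 rose by 5.77 ± 0.90 (SE) on the log2 scale (adjusted p = 6.67e-06). Hk3, the myeloid hexokinase, stood at 96.7, 65.3, 99.98, 106 and 81.2 CPM in the wounds and 1.94, 1.72 and 0.944 CPM in unwounded skin. The log2 Hk3 change was 5.85 ± 0.81 (SE) (adjusted p = 1.14e-06). Slc16a3, which exports lactate, rose (log2 fold change 2.48 ± 0.53 (SE), adjusted p = 3.89e-04). Further along the pathway rose Eno1 (log2 fold change 1.77 ± 0.15 (SE), adjusted p = 2.21e-10) and Pgam1 (log2 fold change 1.79 ± 0.21 (SE), adjusted p = 9.13e-08). Aldoa, the aldolase of muscle and most other tissues, was not called at 2712, 3542, 6811, 6273 and 6007 CPM in the wounds and 9825, 10840.0 and 8148 CPM in unwounded skin (log2 fold change -0.92 ± 0.55 (SE), adjusted p = 0.189). Gapdh and Ldha were not called either (log2 fold change -0.24 and -0.20, adjusted p = 0.651 and 0.657). Muscle markers were lower in every wound than in every unwounded sample, as given above, and their part in these values was not tested. Of 16 hypoxia response genes 6 rose and 2 fell (median 0.61). The count of 2 became 1 without unwounded replicate 1, 2 or 3. Hif1a, the oxygen-regulated transcription factor, was measured at 225, 158, 172, 151 and 122 CPM in the wounds and 52.5, 50.2 and 49.0 CPM in unwounded skin (log2 fold change 1.71 ± 0.41 (SE), adjusted p = 0.00117). Its target Ero1a rose (log2 fold change 2.58 ± 0.43 (SE), adjusted p = 1.68e-05), while Egln1, the hydroxylase that marks Hif1a for degradation, fell (log2 fold change -0.82 ± 0.15 (SE), adjusted p = 3.86e-05).

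Of 18 Nrf2, glutathione and metallothionein genes 12 rose and 2 fell (median log2 fold change 1.49). Slc7a11, the cystine importer, was measured at 160.2, 152, 225, 158 and 138 CPM in the wounds and 0.112, 0.120 and 0.0524 CPM in unwounded skin. Slc7a11 rose by 10.61 ± 0.87 (SE) on the log2 scale (adjusted p = 1.59e-10). Hmox1, which degrades haem, stood at 468, 585, 473, 541 and 699 CPM in the wounds and 50.8, 48.6 and 53.4 CPM in unwounded skin. The log2 Hmox1 change was 3.44 ± 0.65 (SE) (adjusted p = 7.75e-05). The thiol enzymes Gsr and Srxn1 rose by 2.63 ± 0.32 (SE) and 1.94 ± 0.22 (SE) on the log2 scale (adjusted p = 1.45e-07 and 3.05e-08). The metallothioneins, which bind zinc and copper, rose as well: Mt2 was measured at 695, 855, 1316, 942 and 1446 CPM in the wounds and 92.1, 67.8 and 109 CPM in unwounded skin (log2 fold change 3.55 ± 0.53 (SE), adjusted p = 3.22e-06). Mt1 changed by 3.20 ± 0.51 (SE) (adjusted p = 8.91e-06). Catalase, which degrades peroxide, and Gstm1, a glutathione transferase, fell. Gstm1 was measured at 46.2, 61.3, 77.8, 92.6 and 100.4 CPM in the wounds and 174, 195 and 153 CPM in unwounded skin. Gstm1 fell by 1.20 ± 0.27 (SE) on the log2 scale (adjusted p = 5.09e-04).

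Respiratory chain genes fell in 10 of 18 tested members, and 8 were not called (median log2 fold change -0.59). The count of 10 became 3 without unwounded replicate 2 and 6 without P day 2 replicate 1 or 2 or unwounded replicate 1, and 5 with wound replicates 3 to 5 alone. Ndufs1, a subunit of the first complex, was measured at 107, 114, 124, 133 and 135 CPM in the wounds and 206, 284 and 181 CPM in unwounded skin. The log2 Ndufs1 change was -0.87 ± 0.20 (SE) (adjusted p = 8.89e-04). Fatty acid oxidation genes fell in 7 of 14, and 7 were not called (median -0.59), and the count of 7 became 2 without unwounded replicate 2 and 4 without P day 2 replicate 1, and 2 with replicates 3 to 5 alone. Skeletal muscle marker sums were lower in every wound than in every unwounded sample, as given above, and their part in both lists was not tested. Cholesterol synthesis genes rose in 6 of 17 and fell in 2 (median 0.42), and the count of 2 became 1 without unwounded replicate 1. Idi1, an isomerase of the isoprenoid steps, was measured at 29.2, 17.9, 15.98, 12.6 and 18.7 CPM in the wounds and 5.72, 5.33 and 6.34 CPM in unwounded skin. Idi1 rose by 1.71 ± 0.33 (SE) on the log2 scale (adjusted p = 9.94e-05). Dhcr7, a reductase of the last steps, fell and was measured at 55.0, 36.8, 47.9, 39.9 and 34.3 CPM in the wounds and 88.1, 68.6 and 85.0 CPM in unwounded skin (log2 fold change -0.91 ± 0.24 (SE), adjusted p = 0.00228).

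Most matrix-degrading enzymes rose, and their inhibitors moved in both directions. Of 19 metalloproteinase and Timp genes 13 rose and 2 fell (median log2 fold change 4.18). Timp1, the inducible inhibitor, was measured at 302, 362, 322, 286 and 235 CPM in the wounds and 1.31, 1.12 and 1.52 CPM in unwounded skin. The log2 Timp1 change was 7.85 ± 0.78 (SE) (adjusted p = 4.91e-09). Timp3 and Timp4 fell, and Timp2 was not called (log2 fold change -0.19 ± 0.39 (SE), adjusted p = 0.727). Timp3, which is bound to matrix, was measured at 118, 129, 194, 109.5 and 137 CPM in the wounds and 514, 516 and 507 CPM in unwounded skin (log2 fold change -1.9 ± 0.36 (SE), adjusted p = 9.56e-05). Timp4 stood at 2.01, 3.12, 1.39, 4.61 and 4.25 CPM in the wounds and 40.0, 49.3 and 26.5 CPM in unwounded skin (log2 fold change -3.64 ± 0.62 (SE), adjusted p = 2.10e-05). Among the proteases, Mmp10, a stromelysin of migrating keratinocytes, had no count in unwounded skin and was measured at 7.72, 3.68, 3.23, 4.996 and 3.19 CPM in the wounds, at least 146-fold higher. Mmp19 stood at 169, 139, 214, 127 and 119 CPM in the wounds and 8.78, 13.7 and 5.24 CPM in unwounded skin (log2 fold change 4.04 ± 0.66 (SE), adjusted p = 1.31e-05). The aggrecan-cleaving Adamts4 stood at 75.3, 59.7, 70.5, 41.4 and 26.8 CPM in the wounds and 0.748, 1.70 and 0.472 CPM in unwounded skin (log2 fold change 5.74 ± 1.08 (SE), adjusted p = 7.91e-05). Adam8, a membrane protease of leukocytes, was measured at 701, 555, 1118, 755 and 589.8 CPM in the wounds and 21.3, 16.3 and 21.8 CPM in unwounded skin. Adam8 rose by 5.23 ± 0.79 (SE) on the log2 scale (adjusted p = 3.79e-06). None of these groups overlapped.

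Of 17 plasminogen, clotting and serpin genes 10 rose and 1 fell (median log2 fold change 1.42). F10, the precursor of clotting factor X, was measured at 51.0, 55.2, 77.4, 116 and 86.2 CPM in the wounds and 0.112, 0.219 and 0.157 CPM in unwounded skin. The log2 F10 change was 8.78 ± 1.05 (SE) (adjusted p = 1.18e-07). Serpina3n, a protease inhibitor of the acute phase, stood at 577, 978, 804, 562 and 1173 CPM in the wounds and 20.5, 22.9 and 13.8 CPM in unwounded skin. Serpina3n rose by 5.42 ± 0.69 (SE) on the log2 scale (adjusted p = 3.28e-07). The member that fell was Serpine2, which inhibits thrombin and plasminogen activators in tissue (log2 fold change -1.02 ± 0.30 (SE), adjusted p = 0.00673). AP-1 sites, spelled TGANTCA, were found in the 250 bases before the start in 7 of 16 windows of this list, in 4 of 16 metalloproteinase windows and in 6.75% of all windows. In the Tnf and NF-kB list 5 of 17 windows held an AP-1 site. The 7 windows of the plasminogen, clotting and serpin list were of 6 of 11 genes.

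Of 16 provisional matrix genes 12 rose and 1 fell (median log2 fold change 3.14). Thbs1, thrombospondin, which activates latent TGF-beta, was measured at 2839.7, 3400.3, 5215, 2054 and 2031 CPM in the wounds and 65.2, 62.7 and 65.6 CPM in unwounded skin. The log2 Thbs1 change was 5.59 ± 0.81 (SE) (adjusted p = 2.41e-06). Spp1, osteopontin, stood at 2569.7, 2784, 2972, 2526 and 2299.9 CPM in the wounds and 8.60, 13.2 and 4.67 CPM in unwounded skin (log2 fold change 8.21 ± 1.41 (SE), adjusted p = 2.46e-05). Fn1, fibronectin, stood at 903, 727, 1059, 1873 and 1170.3 CPM in the wounds and 102, 167 and 64.8 CPM in unwounded skin. Fn1 rose by 3.37 ± 0.79 (SE) on the log2 scale (adjusted p = 9.58e-04). The hyaluronan system rose across its parts: the synthases Has1 and Has2 changed by 3.94 ± 0.93 (SE) and 2.92 ± 0.61 (SE) on the log2 scale, the hyaluronan-binding proteoglycan Vcan by 4.47 ± 0.58 (SE), and the receptor Cd44 by 2.25 ± 0.26 (SE) (adjusted p = 0.00101, 2.73e-04, 4.86e-07 and 6.08e-08). Ccn2, a target of TGF-beta and of Yap, was the member that fell, at 44.1, 63.3, 49.9, 44.0 and 43.8 CPM in the wounds and 109, 69.7 and 120.5 CPM in unwounded skin. The log2 Ccn2 change was -1.02 ± 0.26 (SE) (adjusted p = 0.00203). Collagen genes depended on the library set. Of 17 tested, 4 rose and 2 fell (median 1.0), against 22.3% and 19% of all genes. The count of 4 became 1 without unwounded replicate 2 and 2 without P day 2 replicate 1 or 2 or unwounded replicate 1 or 3, the count of 2 became 1 without unwounded replicate 1 or 3, and with replicates 3 to 5 alone the calls were 2 falls. Col1a1 was measured at 2336, 3965, 1146, 1116 and 1086 CPM in the wounds and 333, 470.5 and 231 CPM in unwounded skin (log2 fold change 2.48 ± 0.74 (SE), adjusted p = 0.00741). With replicates 3 to 5 alone the log2 fold change was 1.69 (adjusted p = 0.0708). Col17a1, the collagen that anchors basal keratinocytes to their basement membrane, fell in every wound, at 871, 629, 610.5, 522 and 591 CPM in the wounds and 2894, 2059 and 3336 CPM in unwounded skin. Col17a1 fell by 2.1 ± 0.35 (SE) on the log2 scale (adjusted p = 1.36e-05).

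Immediate early genes, transcription factors that cells switch on within minutes of a signal, rose in 13 of 16 tested members and fell in 1 (median log2 fold change 1.68). The count of 1 became 0 without P day 2 replicate 1, 2 or 5 or unwounded replicate 1 or 3, and 0 with replicates 3 to 5 alone. Fosl1, an AP-1 subunit of migrating cells, was measured at 51.8, 43.8, 53.8, 35.5 and 29.1 CPM in the wounds and 0.785, 0.818 and 0.315 CPM in unwounded skin. The log2 Fosl1 change was 6.0 ± 0.64 (SE) (adjusted p = 1.89e-08). Junb, another subunit, stood at 776, 595, 1084, 798 and 551 CPM in the wounds and 82.9, 56.4 and 78.4 CPM in unwounded skin (log2 fold change 3.39 ± 0.42 (SE), adjusted p = 1.79e-07). Fos itself stood at 249, 123, 337, 201 and 109 CPM in the wounds and 26.02, 28.7 and 53.9 CPM in unwounded skin. Fos rose by 2.49 ± 0.54 (SE) on the log2 scale (adjusted p = 4.37e-04). Ier3, a stress-induced gene, was measured at 520.1, 475, 672, 538 and 389 CPM in the wounds and 18.6, 14.7 and 21.9 CPM in unwounded skin. The log2 Ier3 change was 4.82 ± 0.58 (SE) (adjusted p = 1.15e-07). Wounds and unwounded skin did not overlap in these 4 genes.

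In the EGF family 4 ligands rose and 2 receptors fell. Of 14 tested genes 6 rose and 3 fell (median log2 fold change 0.28), against 22.3% and 19% of all genes. The share of falls was thus near that of all genes. Nrg1, the ligand of Erbb3 and Erbb4, was measured at 28.3, 10.9, 11.7, 7.67 and 7.16 CPM in the wounds and 0.635, 0.160 and 0.367 CPM in unwounded skin (log2 fold change 5.13 ± 0.52 (SE), adjusted p = 7.38e-09). Areg stood at 36.8, 9.72, 12.7, 28.1 and 8.12 CPM in the wounds and 1.31, 1.08 and 2.25 CPM in unwounded skin (log2 fold change 3.65 ± 0.58 (SE), adjusted p = 8.38e-06). Hbegf stood at 61.3, 19.2, 17.8, 19.7 and 15.6 CPM in the wounds and 7.14, 5.64 and 7.18 CPM in unwounded skin (log2 fold change 2.01 ± 0.42 (SE), adjusted p = 2.73e-04), each with replicate 1 the highest. Btc, betacellulin, went down among ligands: it was measured at 3.65, 4.21, 1.34, 1.49 and 1.98 CPM in the wounds and 34.2, 28.96 and 32.2 CPM in unwounded skin. The log2 Btc change was -3.64 ± 0.68 (SE) (adjusted p = 6.81e-05). The receptor genes Erbb2 and Erbb3 were measured at 84.1, 66.7, 64.4, 60.3 and 60.5 CPM and 73.5, 73.2, 63.8, 65.5 and 62.6 CPM in the wounds and at 155, 124 and 186 CPM and 187, 151 and 215 CPM in unwounded skin, below it in every wound (log2 fold change -1.21 ± 0.21 (SE) and -1.44 ± 0.20 (SE), adjusted p = 2.57e-05 and 9.44e-07).

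TGF-beta and BMP genes moved in both directions. Of 22 tested genes in the list 5 rose and 7 fell (median log2 fold change 0.19), against 22.3% and 19% of all genes. The count of 7 became 4 without unwounded replicate 3. Skil, the feedback repressor of TGF-beta signalling, was measured at 62.9, 52.9, 61.4, 50.9 and 54.1 CPM in the wounds and 13.7, 12.8 and 11.8 CPM in unwounded skin (log2 fold change 2.14 ± 0.30 (SE), adjusted p = 1.06e-06). Tgfb1 rose (log2 fold change 2.45 ± 0.23 (SE), adjusted p = 1.89e-09). Of the BMP ligands, Bmp4 was measured at 5.73, 5.55, 3.37, 5.17 and 5.89 CPM in the wounds and 30.2, 21.7 and 45.2 CPM in unwounded skin. Bmp4 fell by 2.65 ± 0.40 (SE) on the log2 scale (adjusted p = 3.68e-06). Bmp2 stood at 6.75, 7.98, 27.3, 10.5 and 14.2 CPM in the wounds and 55.0, 35.2 and 52.5 CPM in unwounded skin (log2 fold change -1.84 ± 0.34 (SE), adjusted p = 6.66e-05). Bmp6 stood at 3.63, 4.42, 6.19, 5.77 and 4.09 CPM in the wounds and 16.8, 14.8 and 14.05 CPM in unwounded skin (log2 fold change -1.66 ± 0.24 (SE), adjusted p = 2.63e-06). Each was lower in every wound. Their antagonist Grem1 fell as well, at 36.2, 23.9, 7.53, 6.90 and 5.77 CPM in the wounds and 63.1, 43.8 and 65.0 CPM in unwounded skin. Grem1 fell by 1.83 ± 0.54 (SE) on the log2 scale (adjusted p = 0.00727). It was lowest in replicates 3 to 5.

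In the FGF, PDGF, VEGF and HGF list 5 of 22 rose and 5 fell (median log2 fold change -0.16). Both counts were near the shares of all genes, 22.3% and 19%. The count of rises became 3 without P day 2 replicate 1 or 2 or unwounded replicate 1, and the count of falls became 3 without unwounded replicate 2. With replicates 3 to 5 alone 2 rose. The epithelial FGF receptors fell: Fgfr2 was measured at 39.7, 52.2, 43.9, 43.1 and 41.2 CPM in the wounds and 196, 161 and 234 CPM in unwounded skin. The log2 Fgfr2 change was -2.16 ± 0.22 (SE) (adjusted p = 9.50e-09). Fgfr3 stood at 65.6, 71.5, 70.0, 60.4 and 74.7 CPM in the wounds and 214, 157 and 232 CPM in unwounded skin (log2 fold change -1.55 ± 0.32 (SE), adjusted p = 2.06e-04). Pgf, placental growth factor, was above unwounded skin in every wound, at 10.03, 13.6, 7.90, 6.39 and 5.61 CPM in the wounds and 1.98, 2.65 and 1.52 CPM in unwounded skin. Pgf rose by 2.07 ± 0.41 (SE) on the log2 scale (adjusted p = 1.41e-04).

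Wnt ligands, enhancers and targets were among the genes that fell. Of 22 Wnt and hedgehog genes 1 rose and 10 fell (median log2 fold change -0.80). With replicates 1 and 2 alone 5 fell, and with replicates 3 to 5 alone 10 did. Wnt3 was measured at 13.1, 9.95, 9.38, 9.31 and 8.87 CPM in the wounds and 58.8, 45.5 and 83.2 CPM in unwounded skin. The log2 Wnt3 change was -2.63 ± 0.31 (SE) (adjusted p = 8.03e-08). Wnt10b stood at 0.713, 1.06, 1.11, 0.595 and 0.899 CPM in the wounds and 10.99, 10.2 and 11.1 CPM in unwounded skin (log2 fold change -3.62 ± 0.50 (SE), adjusted p = 9.96e-07). Rspo3, which strengthens Wnt signals, stood at 1.58, 1.76, 0.462, 1.01 and 0.6201 CPM in the wounds and 16.1, 12.4 and 20.02 CPM in unwounded skin. Rspo3 fell by 3.87 ± 0.49 (SE) on the log2 scale (adjusted p = 2.83e-07). Axin2, a feedback target of the pathway, was measured at 17.6, 21.9, 21.6, 23.2 and 22.8 CPM in the wounds and 83.9, 61.6 and 91.4 CPM in unwounded skin. The log2 Axin2 change was -1.88 ± 0.22 (SE) (adjusted p = 5.65e-08). Ligand, enhancer and target were below unwounded skin in every wound. Shh, the hedgehog ligand, was the member that rose, at 2.38, 2.24, 2.40, 2.83 and 3.50 CPM in the wounds and 0.112, 0 and 0.157 CPM in unwounded skin (log2 fold change 5.17 ± 0.83 (SE), adjusted p = 9.23e-06). Gli1, a target of hedgehog signalling, fell and was measured at 8.04, 9.53, 10.2, 6.81 and 5.49 CPM in the wounds and 21.7, 15.7 and 24.6 CPM in unwounded skin. Gli1 fell by 1.37 ± 0.39 (SE) on the log2 scale (adjusted p = 0.0056).

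Basal keratinocyte genes rose in 1 of 15 tested members and fell in 6 (median log2 fold change -0.52), and with replicates 3 to 5 alone none rose. Krt15, a keratin of resting basal cells and the follicle bulge, was measured at 301, 517, 966, 395 and 569.9 CPM in the wounds and 4865, 3545 and 5254 CPM in unwounded skin. The log2 Krt15 change was -3.05 ± 0.49 (SE) (adjusted p = 9.12e-06). Dst, dystonin, which ties keratins to the hemidesmosome, stood at 245, 428, 319, 273 and 329 CPM in the wounds and 1212, 1141 and 1183 CPM in unwounded skin (log2 fold change -1.89 ± 0.19 (SE), adjusted p = 5.78e-09). Trp63, the transcription factor of stratified epithelia, stood at 157, 134, 142, 86.4 and 97.7 CPM in the wounds and 292, 254 and 329.8 CPM in unwounded skin. Trp63 fell by 1.24 ± 0.26 (SE) on the log2 scale (adjusted p = 2.50e-04). Each of the 3 was below unwounded skin in every wound. Krt14, the main keratin of basal cells, was the member that rose, at 8739.5, 5583, 5674, 3835 and 3964 CPM in the wounds and 2365, 1414 and 2812 CPM in unwounded skin. The log2 Krt14 change was 1.34 ± 0.43 (SE) (adjusted p = 0.0124). Its adjusted p was 0.0818 without unwounded replicate 2 and 0.0761 with replicates 3 to 5 alone.

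Results for the differentiated epidermis depended on the library set. In the suprabasal and granular list 1 of 20 genes rose and 10 fell (median log2 fold change -1.79), and the count of 1 became 0 without P day 2 replicate 1 or unwounded replicate 2. With replicates 3 to 5 alone the calls were 17 falls (median -3.64), and with replicates 1 and 2 alone 1 rose and 1 fell. Lor, loricrin, the main protein of the cornified envelope, was measured at 271, 246, 13.95, 13.6 and 10.4 CPM in the wounds and 1443, 820.0 and 1370.5 CPM in unwounded skin (log2 fold change -3.45 ± 1.13 (SE), adjusted p = 0.0144). Replicates 1 and 2 were nearer to unwounded skin than replicates 3 to 5, where the log2 fold change was -6.58 (adjusted p = 4.79e-04). Klk7, a protease that sheds surface cells, was measured at 386, 182, 31.6, 17.5 and 18.01 CPM in the wounds and 267, 209.9 and 307 CPM in unwounded skin and was not called (log2 fold change -1.04 ± 0.80 (SE), adjusted p = 0.317). Replicates 3 to 5 were below every unwounded sample (log2 fold change -3.55, adjusted p = 0.00105), while replicate 1 was above them, and without replicate 1 the log2 fold change was -2.07 (adjusted p = 0.0391).

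Wound-edge keratinocyte genes rose in 17 of 22 members, and 5 were not called (median log2 fold change 5.52, or 4.76 with 3 genes at their bound). With replicates 3 to 5 alone 16 were higher and 2 lower, and without replicate 1, 1 was lower. In replicates 3 to 5 Krt17 and Sprr1a were not called (log2 fold change -0.40 and 0.06), and Cnfn fell (-3.49, adjusted p = 0.00348). The list also holds the stefins Stfa1, Stfa2 and Stfa3, of the family named with the neutrophil genes. Its count and median may not be of keratinocytes alone. Krt6b, a keratin of migrating keratinocytes, was measured at 3715, 1632, 198, 129 and 140.2 CPM in the wounds and 2.80, 1.56 and 3.20 CPM in unwounded skin. Krt6b rose by 8.86 ± 2.42 (SE) on the log2 scale (adjusted p = 0.00386). Gjb2, the gap junction protein connexin 26, stood at 589, 185, 61.9, 36.4 and 36.03 CPM in the wounds and 2.84, 3.29 and 2.67 CPM in unwounded skin. The log2 Gjb2 change was 5.95 ± 1.22 (SE) (adjusted p = 2.40e-04). In both genes replicates 1 and 2 were the highest, and the other 3 were still above unwounded skin, with log2 fold changes of 5.96 and 3.92 (adjusted p = 0.0258 and 0.00295). Keratin 6 genes have near-identical copies, and counting could divide reads between them.

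**Figure D4:**
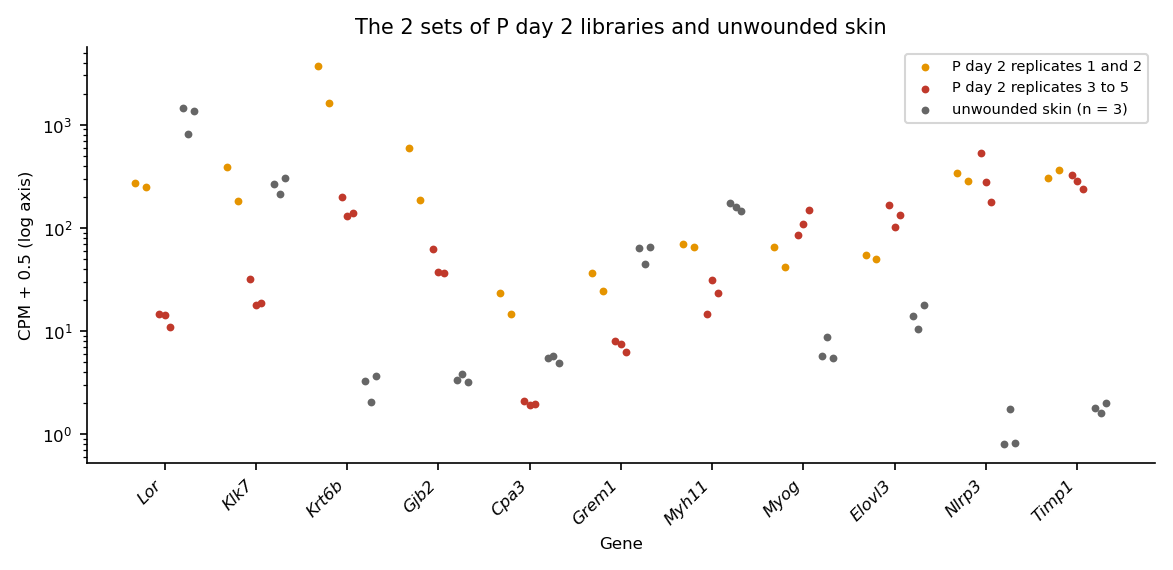
Level per library, log axis of CPM + 0.5, in P day 2 replicates 1 and 2 (orange), P day 2 replicates 3 to 5 (red) and unwounded skin (grey); each point is 1 library. Lor, Klk7, Krt6b and Gjb2 are higher in replicates 1 and 2 than in 3 to 5, Myog and Elovl3 are mostly lower, and the sets overlap in Nlrp3 and Timp1.

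Junction genes fell in 7 of 16 tested members, and 9 were not called (median log2 fold change -0.87). With replicates 1 and 2 alone 3 fell, and with replicates 3 to 5 alone 10 did. Cldn1, the claudin of the epidermal tight junction, was measured at 79.3, 61.6, 41.2, 26.3 and 34.1 CPM in the wounds and 204, 158 and 222 CPM in unwounded skin (log2 fold change -2.01 ± 0.38 (SE), adjusted p = 7.40e-05). Ocln, occludin, stood at 5.15, 5.11, 4.71, 3.33 and 3.26 CPM in the wounds and 19.2, 16.1 and 21.8 CPM in unwounded skin. Ocln fell by 2.14 ± 0.39 (SE) on the log2 scale (adjusted p = 4.70e-05). Cdh1, E-cadherin, stood at 244, 163, 158, 122 and 117 CPM in the wounds and 389, 322 and 455 CPM in unwounded skin. The log2 Cdh1 change was -1.27 ± 0.31 (SE) (adjusted p = 0.00122). Each was below unwounded skin in every wound. In the list of hair follicle stem cells and resting follicles 9 of 16 fell and 7 were not called (median -1.21). That list also holds Il31ra, given with the sensory and itch genes. Lhx2, a transcription factor of follicle stem cells, was measured at 10.96, 11.3, 22.7, 9.75 and 10.6 CPM in the wounds and 56.7, 36.5 and 64.3 CPM in unwounded skin (log2 fold change -2.01 ± 0.39 (SE), adjusted p = 1.24e-04). Replicate 3 was the highest of the wounds. Lrig1, which restrains Erbb receptors in follicle progenitors, was measured at 54.9, 62.5, 66.9, 67.2 and 68.4 CPM in the wounds and 156, 141 and 144 CPM in unwounded skin. Lrig1 fell by 1.20 ± 0.29 (SE) on the log2 scale (adjusted p = 0.00133).

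Sebaceous gland genes divided, with 6 of 15 higher and 3 lower (median log2 fold change 0.59), against 22.3% and 19% of all genes. The share of falls was thus near that of all genes. Awat1, Awat2, Dgat2l6 and Mc5r were called neither with replicates 3 to 5 alone nor with replicates 1 and 2 alone. Elovl3, which lengthens fatty acids in the gland, was measured at 54.2, 48.9, 166, 101 and 131 CPM in the wounds and 13.4, 9.95 and 17.4 CPM in unwounded skin. The log2 Elovl3 change was 2.89 ± 0.51 (SE) (adjusted p = 3.49e-05). Plin2, a lipid droplet coat protein found in many cells, stood at 419, 312, 663, 537 and 549.6 CPM in the wounds and 103, 110.0 and 92.5 CPM in unwounded skin (log2 fold change 2.28 ± 0.40 (SE), adjusted p = 3.54e-05). Both were highest in replicates 3 to 5. Scd3, a desaturase of the gland, fell, at 9.23, 10.04, 5.87, 12.3 and 18.2 CPM in the wounds and 77.9, 63.3 and 59.1 CPM in unwounded skin. Scd3 fell by 2.58 ± 0.62 (SE) on the log2 scale (adjusted p = 0.00125). Acsbg1 fell as well (log2 fold change -2.18 ± 0.42 (SE), adjusted p = 1.23e-04). Serpina12, an adipokine also found in epidermis and named by size among genes outside the lists, was measured at 8.99, 9.93, 0.231, 0.744 and 0.775 CPM in the wounds and 123, 87.1 and 143 CPM in unwounded skin. The log2 Serpina12 change was -4.81 ± 0.94 (SE) (adjusted p = 1.28e-04). Tgm7, a transglutaminase named the same way, was measured at 0.713, 1.34, 0.231, 0.625 and 0.155 CPM in the wounds and 24.1, 22.4 and 30.8 CPM in unwounded skin (log2 fold change -5.35 ± 0.72 (SE), adjusted p = 6.88e-07). Skint5, of the family of epidermal proteins that select gamma-delta T cells, was measured at 1.51, 3.29, 0.370, 0.297 and 0.434 CPM in the wounds and 31.1, 33.1 and 41.8 CPM in unwounded skin. Skint5 fell by 4.87 ± 0.85 (SE) on the log2 scale (adjusted p = 2.82e-05). The list of epidermal gamma-delta T cells also holds Skint1, Skint3 and Skint7 of that family, so it is not made of T-cell genes alone. In it 1 of 10 genes was higher, Fcer1g, and 7 were lower (median -2.22). With replicates 1 and 2 alone 4 were lower.

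Cells of resting skin other than T cells gave mixed results. In the dendritic and Langerhans cell list 1 of 13 genes rose and 1 fell (median log2 fold change -0.46). With replicates 3 to 5 alone 3 fell, and with replicates 1 and 2 alone none did. Cd207, langerin, the defining receptor of Langerhans cells, was the member that fell, at 6.23, 3.08, 3.33, 2.23 and 2.54 CPM in the wounds and 12.9, 9.71 and 11.2 CPM in unwounded skin. The log2 Cd207 change was -1.69 ± 0.45 (SE) (adjusted p = 0.00283). In the list of mast cell and basophil genes 5 of 11 rose and 1 fell (median 0.79). Among those that rose were Mcpt8, a basophil protease, and Hdc, which makes histamine and is also in the list of mature neutrophil genes. The others that rose were the tryptase gene Tpsab1, Kit and Fcer1a. With replicates 1 and 2 alone Tpsab1 and Fcer1a rose (log2 fold change 4.57 and 5.03, adjusted p = 0.0137 and 0.0145). With replicates 3 to 5 alone they were not called (2.90 and 1.98, adjusted p = 0.0896 and 0.339). Kit was not called in either set alone. None of the 4 mast cell markers was called. The count of 5 became 2 without unwounded replicate 1 or 3 and 3 without P day 2 replicate 1 or unwounded replicate 2, and 2 with replicates 3 to 5 alone (Mcpt8 and Hdc), where 2 fell. Mrgprb2, the mast cell receptor for cationic peptides, was the member that fell, at 1.41, 0.671, 0.139, 0.297 and 0.589 CPM in the wounds and 14.7, 13.02 and 14.05 CPM in unwounded skin (log2 fold change -4.44 ± 0.58 (SE), adjusted p = 4.55e-07). The mast cell protease genes Cpa3 and Tpsb2 were not called: Cpa3 was measured at 22.96, 14.2, 1.57, 1.40 and 1.46 CPM in the wounds and 4.97, 5.19 and 4.35 CPM in unwounded skin (log2 fold change 0.79 ± 1.15 (SE), adjusted p = 0.617). Tpsb2 stood at 27.2, 20.4, 4.07, 5.83 and 5.61 CPM in the wounds and 13.05, 9.37 and 9.02 CPM in unwounded skin. In both genes replicates 1 and 2 were above unwounded skin and replicates 3 to 5 below it. The mast cell markers (4 genes) summed to 8.55 to 78.1 CPM in the wounds and 19.7 to 25.8 CPM in unwounded skin.

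Genes of muscle regeneration rose in 8 of 13 tested members, and 5 were not called (median log2 fold change 1.75). Chrng, the fetal subunit of the acetylcholine receptor, was measured at 11.9, 7.52, 16.5, 15.3 and 20.7 CPM in the wounds and 0.0374, 0.399 and 0.0524 CPM in unwounded skin. Chrng rose by 6.13 ± 0.90 (SE) on the log2 scale (adjusted p = 2.84e-06). Mymk, which fuses myoblasts, stood at 3.03, 3.10, 13.4, 6.90 and 10.1 CPM in the wounds and 0.262, 0.239 and 0 CPM in unwounded skin. The log2 Mymk change was 5.23 ± 0.90 (SE) (adjusted p = 2.54e-05). Mymx, its partner in fusion, stood at 1.79, 2.06, 6.05, 5.12 and 6.98 CPM in the wounds and 0, 0 and 0.0524 CPM in unwounded skin, a ratio of 379.5-fold, with a 95% counting interval of 67.9 to 15011 (adjusted p = 1.74e-06). In Mymk and Mymx replicates 1 and 2 were the lowest of the wounds. Among 18 adult muscle genes 2 fell and 16 were not called (median -1.46), and 14 of 18 had no overlap between the groups, with the wounds lower, against 22.6% of all genes. Both calls were lost with replicates 3 to 5 alone, and with only these 8 libraries in the fit 15 fell. Casq1, the calcium store of the sarcoplasmic reticulum, was measured at 163, 150.1, 411, 395 and 360.4 CPM in the wounds and 1795, 2101 and 1316 CPM in unwounded skin (log2 fold change -2.55 ± 0.74 (SE), adjusted p = 0.0062). With replicates 3 to 5 alone its adjusted p was 0.0525.

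Schwann cell genes fell in 9 of 12 tested members, and 3 were not called (median log2 fold change -1.33). The count of 9 became 5 without unwounded replicate 2 and 2 with wound replicates 1 and 2 alone. S100b was measured at 2.05, 2.55, 2.36, 1.61 and 1.61 CPM in the wounds and 6.95, 9.65 and 8.75 CPM in unwounded skin. S100b fell by 2.05 ± 0.39 (SE) on the log2 scale (adjusted p = 9.09e-05). Mbp, a myelin protein, stood at 70.9, 81.0, 67.3, 66.7 and 61.4 CPM in the wounds and 159, 199 and 146 CPM in unwounded skin. The log2 Mbp change was -1.27 ± 0.34 (SE) (adjusted p = 0.00322). Contractile and smooth muscle genes fell in 8 of 13, and 5 were not called (median -1.67). With replicates 1 and 2 alone 2 fell, and with replicates 3 to 5 alone 8 did. Lmod1, a smooth muscle actin nucleator, was measured at 15.7, 15.8, 21.1, 13.5 and 22.9 CPM in the wounds and 60.7, 64.1 and 54.4 CPM in unwounded skin (log2 fold change -1.75 ± 0.38 (SE), adjusted p = 3.70e-04). Myh11, smooth muscle myosin, stood at 69.1, 65.1, 14.2, 31.02 and 23.04 CPM in the wounds and 172, 159.5 and 146 CPM in unwounded skin (log2 fold change -1.97 ± 0.53 (SE), adjusted p = 0.0034), lowest in replicates 3 to 5. Adipocyte genes fell in 4 of 16, a share near the 19% of all genes, and 12 were not called (median -1.01). With only these 8 libraries in the fit 7 fell. Endothelial genes rose in 4 of 16, a share near the 22.3% of all genes, and 12 were not called (median 0.46). With only these 8 libraries 7 rose. With replicates 3 to 5 alone 1 fell. The risers included Angpt2, a vessel-destabilising factor of sprouting endothelium, at 23.7, 20.6, 17, 17.3 and 15.8 CPM in the wounds and 5.16, 5.23 and 4.04 CPM in unwounded skin. Angpt2 rose by 1.97 ± 0.51 (SE) on the log2 scale (adjusted p = 0.00249). Red cell genes rose in 5 of 6 tested members (median 2.39), and the count of 5 became 0 without P day 2 replicate 5 and 1 without unwounded replicate 2 and 2 without unwounded replicate 3 and 3 without unwounded replicate 1.

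Factors of sensory nerves and itch divided into lower and higher. In this list 3 of 10 tested genes rose and 6 fell (median log2 fold change -1.32). Il31ra, the receptor of the itch cytokine interleukin-31, was measured at 6.75, 13.95, 6.47, 4.49 and 5.15 CPM in the wounds and 63.4, 56.4 and 62.0 CPM in unwounded skin. The log2 Il31ra change was -3.04 ± 0.50 (SE) (adjusted p = 1.15e-05). The neurotrophic factors Ntf3 and Gdnf fell, Gdnf at 10.96, 7.36, 6.79, 6.30 and 7.94 CPM in the wounds and 20.7, 18.4 and 25.9 CPM in unwounded skin (log2 fold change -1.46 ± 0.31 (SE), adjusted p = 3.02e-04) and Ntf3 with a log2 fold change of -1.82 ± 0.45 (SE) (adjusted p = 0.00145). Artn, a ligand of the same family as Gdnf, rose by 1.73 ± 0.47 (SE) (adjusted p = 0.00365). Angptl7, a secreted protein outside the lists named by the size of its fall, was measured at 1.36, 1.504, 3.60, 1.19 and 3.53 CPM in the wounds and 85.8, 60.7 and 72.1 CPM in unwounded skin. Angptl7 fell by 5.03 ± 0.79 (SE) on the log2 scale (adjusted p = 7.38e-06). Hamp2, a gene of the hepcidin family, was measured at 0.130, 0.463, 0.0924, 0.0297 and 0.124 CPM in the wounds and 22.95, 11.9 and 10.1 CPM in unwounded skin. The log2 Hamp2 change was -6.38 ± 0.88 (SE) (adjusted p = 1.03e-06). Kcnj16, a potassium channel, was measured at 0.173, 0.370, 0.370, 0.565 and 1.02 CPM in the wounds and 12.8, 12.03 and 16.04 CPM in unwounded skin (log2 fold change -4.76 ± 0.65 (SE), adjusted p = 8.44e-07). No wound reached the lowest unwounded level in these 3 genes. The same rule of size also named Odf3l2, Mrgprb11-ps, Lce1m, Gm17130 and Rec8, with log2 fold changes of -7.73, -6.65, -5.17, -5.11 and -4.87 (adjusted p = 1.60e-05, 2.91e-05, 1.03e-04, 9.15e-06 and 4.89e-06). Few counts in the wounds set the size of some of these falls, with 5 counts of Odf3l2, 25 of Gm17130 and 33 of Hamp2 over the 5 libraries.

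Genes of the dividing cell rose. All 19 tested G2 and M phase genes were higher (median log2 fold change 1.92), as were 17 of 19 G1 and S phase genes (median 1.29). The promoters of Ccnb2, a mitotic cyclin, and Mcm6, a subunit of the replicative helicase, are shown for motifs known from genes of these phases: CCAAT boxes in capitals for Ccnb2 at chr9:70421555-70421704 (minus strand) and E2F sites (TTTGGCGC or TTTCGCGC) in capitals for Mcm6 at chr1:128359706-128359855 (minus), again the 150 bases before the start from RefSeq on GRCm38.p6 with both strands searched.
Ccnb2: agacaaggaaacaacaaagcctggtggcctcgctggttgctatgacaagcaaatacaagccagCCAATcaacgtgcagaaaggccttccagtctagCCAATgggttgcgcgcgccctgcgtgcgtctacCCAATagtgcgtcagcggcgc
Mcm6: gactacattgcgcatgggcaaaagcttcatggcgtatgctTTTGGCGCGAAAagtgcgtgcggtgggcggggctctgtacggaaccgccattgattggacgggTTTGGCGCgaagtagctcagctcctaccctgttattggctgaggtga
The CCAAT boxes of Ccnb2 begin 87, 54 and 21 bases before the start, and the E2F matches of Mcm6 begin 110, 106 and 47 bases before it. In the 250 bases before the start, 14 of 15 windows of G2 and M phase genes held CCAAT, against 33.8% of all windows, and 3 of 18 windows of G1 and S phase genes held the E2F letters, against 0.654%. CCAAT was also found in 12 of 18 windows of G1 and S phase genes and in 12 of 18 of clock genes. Ccnb2 was measured at 33.8, 36.2, 27.4, 25.4 and 25.98 CPM in the wounds and 7.25, 5.92 and 10.7 CPM in unwounded skin. Ccnb2 rose by 1.91 ± 0.26 (SE) on the log2 scale (adjusted p = 7.81e-07). Plk1, the mitotic kinase, stood at 37.6, 36.5, 39.3, 31.05 and 32.3 CPM in the wounds and 7.25, 4.25 and 7.71 CPM in unwounded skin. The log2 Plk1 change was 2.47 ± 0.24 (SE) (adjusted p = 2.19e-09). Aurkb, the kinase of chromosome segregation, stood at 27.8, 28.1, 24.99, 22.1 and 22.6 CPM in the wounds and 5.87, 4.43 and 5.29 CPM in unwounded skin (log2 fold change 2.28 ± 0.31 (SE), adjusted p = 7.49e-07). Foxm1, which drives mitotic genes, rose with them (log2 fold change 1.86 ± 0.23 (SE), adjusted p = 1.99e-07). Of the earlier phase, Ccne1, cyclin E, was measured at 13.97, 12.4, 13.8, 9.64 and 11.2 CPM in the wounds and 2.09, 1.34 and 2.99 CPM in unwounded skin. Ccne1 rose by 2.53 ± 0.24 (SE) on the log2 scale (adjusted p = 1.74e-09). E2f1 stood at 26.3, 26.7, 24.4, 27.2 and 21.95 CPM in the wounds and 7.55, 8.04 and 9.12 CPM in unwounded skin (log2 fold change 1.62 ± 0.15 (SE), adjusted p = 1.28e-09). Rrm2, a subunit of the enzyme that makes deoxynucleotides, stood at 83.2, 62.0, 63.0, 44.2 and 48.4 CPM in the wounds and 14.6, 11.9 and 15.04 CPM in unwounded skin (log2 fold change 2.12 ± 0.29 (SE), adjusted p = 7.47e-07). Mcm6 rose less, at 72.6, 70.7, 64.5, 63.7 and 60.9 CPM in the wounds and 41.3, 33.2 and 49.1 CPM in unwounded skin (log2 fold change 0.69 ± 0.21 (SE), adjusted p = 0.00801), and without unwounded replicate 2 its adjusted p was 0.0606. Groups did not overlap in these genes.

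Cdkn1a (gene ENSMUSG00000023067, GRCm39 chromosome 17, 29309936 to 29319701), which encodes the CDK inhibitor p21, was measured at 380.2, 354, 463, 300.1 and 361 CPM in the wounds and 244, 194 and 246 CPM in unwounded skin (log2 fold change 0.71 ± 0.23 (SE), adjusted p = 0.0152). All 5 wounds were above all 3 unwounded samples, and without unwounded replicate 2 the log2 fold change was 0.63 (adjusted p = 0.0603). Of the 14 tested CDK inhibitor and senescence genes 8 rose and 3 fell (median log2 fold change 0.76). The count of 8 became 5 without unwounded replicate 2. Cdkn1b, which encodes p27 and holds resting cells out of the cycle, was measured at 60.0, 69.0, 60.7, 45.1 and 54.1 CPM in the wounds and 118, 99.0 and 117 CPM in unwounded skin. Cdkn1b fell by 0.94 ± 0.15 (SE) on the log2 scale (adjusted p = 5.21e-06). Cdkn2b fell as well, at 4.37, 4.35, 4.16, 4.64 and 3.81 CPM in the wounds and 9.68, 8.24 and 10.7 CPM in unwounded skin. The log2 Cdkn2b change was -1.16 ± 0.24 (SE) (adjusted p = 2.14e-04). Cdkn2d rose, at 31.4, 28.3, 33.3, 33.1 and 28.96 CPM in the wounds and 17.8, 17.1 and 17.9 CPM in unwounded skin (log2 fold change 0.82 ± 0.15 (SE), adjusted p = 4.24e-05). Lmnb1, the nuclear lamin whose loss is used as a sign of senescence, was measured at 166, 135, 194, 121 and 95.1 CPM in the wounds and 22.7, 20.02 and 27.3 CPM in unwounded skin. Lmnb1 rose by 2.61 ± 0.32 (SE) on the log2 scale (adjusted p = 2.18e-07). Among 18 p53 targets other than Cdkn1a 5 rose and 7 fell (median 0.37), against 22.3% and 19% of all genes. Gadd45a, a stress gene of DNA damage, rose (log2 fold change 2.52 ± 0.43 (SE), adjusted p = 2.22e-05), as did Mdm2, the p53 inhibitor (log2 fold change 0.80 ± 0.24 (SE), adjusted p = 0.00744). Sesn1, which restrains mTOR, fell (log2 fold change -0.67 ± 0.14 (SE), adjusted p = 3.48e-04), as did Zmat3 (log2 fold change -0.88 ± 0.20 (SE), adjusted p = 5.99e-04).

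Ribosome biogenesis genes rose in 15 of 18 tested members, and 3 were not called (median log2 fold change 0.89). Ncl, nucleolin, was measured at 668, 583, 633, 520.1 and 587 CPM in the wounds and 269, 307 and 294 CPM in unwounded skin. The log2 Ncl change was 1.04 ± 0.20 (SE) (adjusted p = 8.98e-05). Gnl3, nucleostemin, stood at 72.8, 69.7, 72.2, 66.3 and 78.7 CPM in the wounds and 32.5, 38.9 and 33.4 CPM in unwounded skin (log2 fold change 1.04 ± 0.16 (SE), adjusted p = 6.41e-06). In the unfolded protein response 8 of 15 rose and 1 fell (median 0.85). Hspa5, the chaperone BiP of the endoplasmic reticulum, was measured at 992, 746, 669, 682 and 672 CPM in the wounds and 275, 368 and 261 CPM in unwounded skin. Hspa5 rose by 1.32 ± 0.23 (SE) on the log2 scale (adjusted p = 2.64e-05). Manf and Creld2 rose by 1.18 ± 0.20 (SE) and 1.11 ± 0.17 (SE) on the log2 scale (adjusted p = 1.42e-05 and 6.48e-06). Heat shock genes divided evenly, with 4 of 12 higher and 4 lower (median 0.18). The inducible chaperone Hspa1a was lower in every wound, at 27.6, 21.6, 23.1, 26.8 and 22.2 CPM in the wounds and 52.0, 42.6 and 65.8 CPM in unwounded skin. The log2 Hspa1a change was -1.14 ± 0.23 (SE) (adjusted p = 1.51e-04). Its near-identical copy Hspa1b fell too (log2 fold change -1.19 ± 0.32 (SE), adjusted p = 0.00348), and counting could divide reads between the pair.

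Circadian clock genes fell in 9 of 17 tested members and rose in 2 (median log2 fold change -0.92). The clock is a feedback loop in which Bmal1 with a partner such as Npas2 drives the Per, Cry and Rev-erb genes and a set of output factors, the PAR bZIP proteins. Among the output factors, Hlf (GRCm39 chromosome 11, 90227221 to 90281761) was measured at 7.48, 11.8, 6.10, 5.86 and 7.07 CPM in the wounds and 92.5, 79.6 and 101 CPM in unwounded skin (log2 fold change -3.57 ± 0.31 (SE), adjusted p = 3.01e-10). Dbp stood at 45.1, 57.9, 66.6, 58.5 and 63.1 CPM in the wounds and 189.9, 201 and 184 CPM in unwounded skin (log2 fold change -1.72 ± 0.48 (SE), adjusted p = 0.00452). Tef stood at 121, 168, 203, 173 and 214 CPM in the wounds and 362, 396 and 355 CPM in unwounded skin (log2 fold change -1.08 ± 0.30 (SE), adjusted p = 0.00404). Nr1d1, which encodes Rev-erb alpha, the repressor of Bmal1, stood at 94.2, 92.6, 89.8, 84.3 and 86.0 CPM in the wounds and 487, 444 and 458 CPM in unwounded skin. The log2 Nr1d1 change was -2.37 ± 0.28 (SE) (adjusted p = 1.12e-07). Bmal1 and Npas2 fell as well, Bmal1 at 14.3, 13.5, 7.11, 12.4 and 11.1 CPM in the wounds and 29.4, 26.6 and 35.4 CPM in unwounded skin (log2 fold change -1.38 ± 0.34 (SE), adjusted p = 0.00144). Npas2 stood at 3.35, 4.40, 2.03, 3.36 and 3.22 CPM in the wounds and 14.1, 9.39 and 14.6 CPM in unwounded skin (log2 fold change -1.95 ± 0.51 (SE), adjusted p = 0.00283). Cry2, Per3 and Nr1d2 changed by -1.28 ± 0.18 (SE), -0.92 ± 0.27 (SE) and -1.19 ± 0.18 (SE) as log2 fold changes (adjusted p = 1.22e-06, 0.00707 and 3.43e-06). The 2 that rose repress transcription: Nfil3, which opposes the PAR bZIP factors, was measured at 66.7, 70.5, 104, 75.7 and 59.3 CPM in the wounds and 19.03, 19.9 and 12.7 CPM in unwounded skin. The log2 Nfil3 change was 2.13 ± 0.36 (SE) (adjusted p = 1.73e-05). Bhlhe40 stood at 217, 212, 234, 252 and 255 CPM in the wounds and 102, 149 and 88.9 CPM in unwounded skin (log2 fold change 1.05 ± 0.21 (SE), adjusted p = 1.69e-04). The labels give no hour of sampling, so the time of day cannot be told apart from the wound in these genes. E-boxes, spelled CACGTG, were found in 6 of 18 clock gene windows of 250 bases and in 6.02% of all windows. The 6 windows were of 5 of 14 genes.

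**Figure D5:**
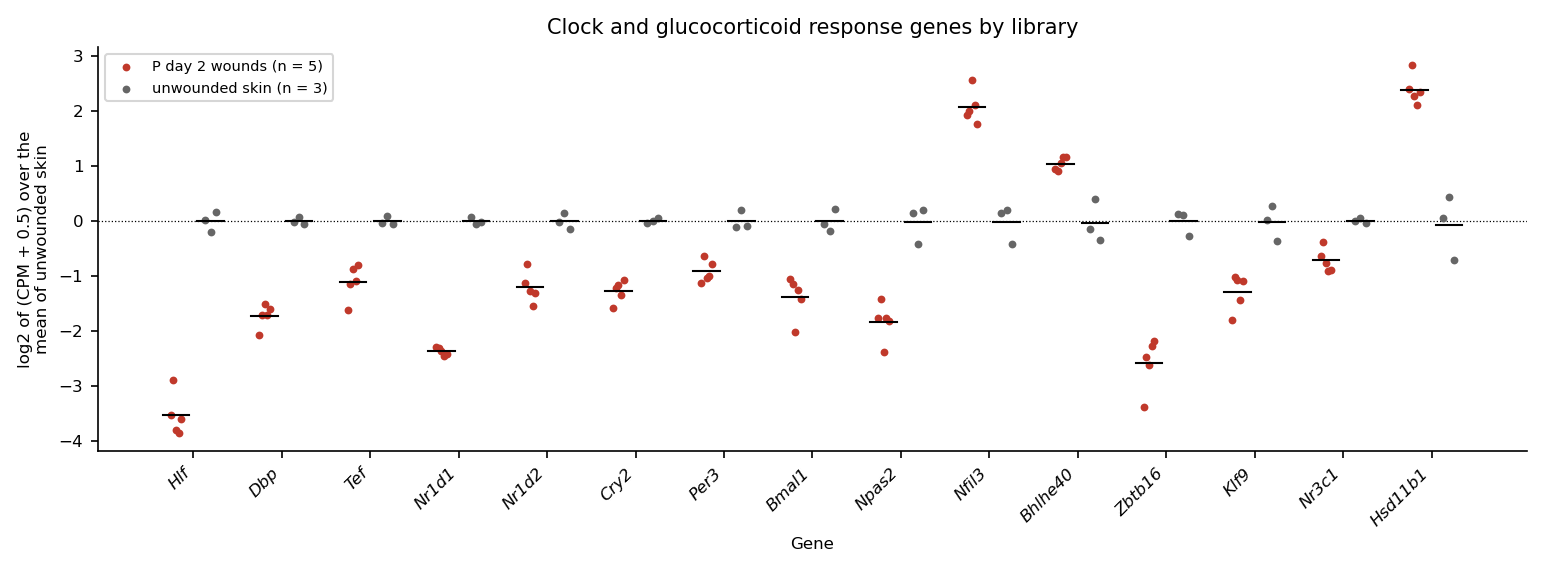
Level of clock and glucocorticoid response genes in each library divided by the mean of the 3 unwounded samples, as log2 of (CPM + 0.5), in P day 2 wounds (red, 5 libraries) and unwounded skin (grey, 3 libraries); short bars are group means. Hlf, Nr1d1, Dbp and Zbtb16 lie below 0 in every wound, and Nfil3, Bhlhe40 and Hsd11b1 above it.

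Glucocorticoid response genes divided, with 4 of 12 higher and 3 lower (median log2 fold change 0.23), against 22.3% and 19% of all genes. Zbtb16, a strongly hormone-induced factor, was measured at 10.8, 20.7, 18.8, 23.97 and 25.5 CPM in the wounds and 129, 127 and 97.5 CPM in unwounded skin. Zbtb16 fell by 2.56 ± 0.54 (SE) on the log2 scale (adjusted p = 2.92e-04). Klf9 stood at 40.1, 69.1, 66.5, 51.3 and 65.3 CPM in the wounds and 142, 170.5 and 109 CPM in unwounded skin (log2 fold change -1.27 ± 0.27 (SE), adjusted p = 3.65e-04). Nr3c1, the receptor, changed by -0.71 ± 0.15 (SE) as a log2 fold change (adjusted p = 3.39e-04). Hsd11b1, the enzyme that makes active hormone inside cells, rose, at 34.3, 46.6, 31.4, 28.1 and 33.02 CPM in the wounds and 6.35, 8.50 and 3.56 CPM in unwounded skin (log2 fold change 2.49 ± 0.47 (SE), adjusted p = 8.16e-05).

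The P wounds of day 2 were also compared with the P wounds of day 4, a later wound of the same arm. With edgeR, 557 (2.7%) of the same 20657 genes were higher at day 2 and 1189 (5.76%) lower. Single libraries moved these counts: 295 and 710 without P day 2 replicate 4, 244 and 693 without P day 2 replicate 5, and 278, 325 and 853 higher without P day 4 replicate 1, 2 or 4. In the lists of neutrophil-attracting CXC chemokines and their receptors, mature neutrophil genes, Tnf and NF-kB feedback, and both phases of the cell cycle, no member passed this test, with 1 of 9, 1 of 16, 3 of 18, 0 of 19 and 0 of 19 at an unadjusted p under 0.05 and 0 in each by DESeq2. Of 17 monocyte and wound macrophage genes none passed, with 6 at an unadjusted p under 0.05 and 2 by DESeq2. Without P day 4 replicate 4, 2 Tnf and NF-kB feedback genes and 1 gene each of the chemokine, mature neutrophil and monocyte lists were higher at day 2. Chil3, a chitinase-like protein that macrophages also make and 1 of the late granule genes counted further on, was higher at day 2, at 212 ± 49.5 CPM (SD, n = 5), than at day 4, at 21.9 ± 11.97 CPM (SD, n = 5), a log2 difference of 3.28 ± 0.70 (SE), adjusted p = 0.00383. Both metallothioneins were higher as well, Mt2 at 1051 ± 318 CPM and 305 ± 66.9 CPM (log2 difference 1.79 ± 0.40 (SE), adjusted p = 0.00509) and Mt1 at 688 ± 222 CPM and 205 ± 41.8 CPM (log2 difference 1.75 ± 0.39 (SE), adjusted p = 0.00523). The muscle stress genes Ankrd2 and Rrad were among the largest differences of this direction: Ankrd2 was at 352 ± 89.1 CPM and 49.0 ± 27.6 CPM (log2 difference 2.85 ± 0.61 (SE), adjusted p = 0.00406). Rrad stood at 196 ± 65.8 CPM and 28.9 ± 15.2 CPM (log2 difference 2.77 ± 0.47 (SE), adjusted p = 5.14e-04). The list of late granule precursors, with 4 of 7 members higher at day 2, had 1 to 3 higher when 1 library was left out. The count fell below 3 without P day 2 replicate 2, 3, 4 or 5 or P day 4 replicate 2 or 5.

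Lower at day 2 than at day 4 were 11 of 20 suprabasal and granular genes and 7 of 16 junction genes. When 1 library was left out these counts ranged from 6 to 14 and from 2 to 9. The suprabasal count moved by over 1.5 times without P day 2 replicate 3, 4 or 5 or P day 4 replicate 2, and the junction count without P day 2 replicate 2, 3, 4 or 5 or P day 4 replicate 1, 2 or 3. Aloxe3 was at 13.2 ± 8.35 CPM (SD, n = 5) at day 2 and 63.7 ± 26.2 CPM (SD, n = 5) at day 4 (log2 difference -2.27 ± 0.40 (SE), adjusted p = 7.15e-04). Cdkn2b was lower at day 2 than at day 4 too, at 4.27 ± 0.305 CPM and 9.81 ± 3.06 CPM (log2 difference -1.20 ± 0.21 (SE), adjusted p = 7.10e-04). Wnt10b was lower as well (log2 difference -2.56 ± 0.45 (SE), adjusted p = 7.39e-04). Mymk was at 7.29 ± 4.48 CPM at day 2 and 57.3 ± 33.8 CPM at day 4 (log2 difference -2.98 ± 0.57 (SE), adjusted p = 0.00148). The hair shaft and root sheath list had 15 of 16 lower at day 2, and 1 of 16 without P day 4 replicate 3. Krt28, a keratin of the inner root sheath, was at 0.149 to 0.434 CPM over the day 2 libraries and 0.604 to 399 CPM over those of day 4, and without P day 4 replicate 3 its adjusted p was 0.0654. Both comparisons use the same day 2 wounds, so their values are given side by side only.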

How the data were processed

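Poly(A) RNA of mouse skin was sequenced as stranded libraries on a NovaSeq, per the labels' protocols. The deposited files hold raw read counts per gene for 55414 genes, not normalized. Per the submitters' processing notes, the authors used Trimmomatic, HISAT2 2.1.0, SAMtools 1.9 and HTSeq with the build GRCm39; the strand setting of the counting and the annotation release are not given in the sources used here. A gene and an antisense partner could then share reads. Gene names came from the files, and positions from GENCODE release M39 on GRCm39, in which 54749 of the files' genes were found. Promoters are RefSeq sequences on GRCm38.p6, matched by symbol.

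Counts of all 36 libraries (totals of 11807291 to 58375510) in 7 groups were fitted together with edgeR 4.0.16 (R 4.3.3): genes kept by filterByExpr at a count of 10 and a total of 15, TMM factors, robust glmQLFit and two-sided glmQLFTest, with Benjamini-Hochberg adjustment over 20657 genes and a threshold of 0.05. Changes beyond 2-fold were tested with glmTreat. Each SE is derived from the test: the size of the log2 fold change divided by the square root of the F statistic of glmQLFTest. A difference is P day 2 minus the other group. Where 1 group had no count, a bound used 3 counts over the group, and with 1 to 3 counts the ratio of pooled levels is given with its exact 95% counting interval. Plots used a pseudocount of 0.5 or 0.02 CPM. Alternatives were DESeq2 1.42.0, limma 3.58.1 (voom with sample weights), other scaling and filters, each library left out, and a replicate block. Fits of P day 2 replicates 3 to 5 only, or 1 and 2 only, were chosen after seeing the data. The script was tested on simulated data. No pair of replicates agreed within sampling noise.

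The text names genes of 68 lists (983 genes, of which 982 were found), and outside them the 12 genes higher and the 12 lower with the largest log2 fold change among those called, with a mean of at least 5 CPM in the higher group and no overlap between groups, and likewise 5 each against P day 4; further members of near-identical families were skipped. Members and lists were chosen with earlier results of these data known, and list counts are descriptions with no test of the list. In each list the examples were picked from its members after their values were seen. Other groups of the series entered only the shared fit. A few list members are not reported here by name.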

Additional observations from a re-analysis of the deposited data

Results flagged for a closer look

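In 10 of the 249 genes named for the comparison with unwounded skin, 1 wound library lay far from the other 4, with a gap above 0.71 of the group's range (Dixon's test at 5 samples). Chance flags about 1 in 20 groups, and here it was 4.02% of the genes. Replicate 1 was the highest wound for Hbegf, at 61.3 CPM, and Hspa5, at 992 CPM, and the lowest for Axin2, at 17.6 CPM, and Egln1, at 87.6 CPM. Replicate 2 was the lowest for Chil3, at 126 CPM, and Srxn1, at 82.1 CPM, and the highest for Hamp2, at 0.463 CPM. Replicate 3 was the highest for Lhx2, at 22.7 CPM, and the lowest for Bmp4, at 3.37 CPM, and replicate 4 was the only wound library with counts of Odf3l2, at 0.149 CPM.

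The response of P wounds differed between the 2 days: 557 genes were higher and 1189 lower at day 2 than at day 4 by edgeR's test of that difference.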

How the results depend on the processing

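Against unwounded skin, the 4609 higher and 3926 lower genes stayed within 1.5 times of these counts under other scaling, filters, robust fitting off, the 8 libraries alone, each library left out and DESeq2. With limma-voom 6223 were lower, and with P day 2 replicates 1 and 2 only 2559; beyond 2-fold, 809 became 1263 with limma-voom, 487 with DESeq2 and 408 with replicates 1 and 2 only. Against P day 4, the 557 higher genes became 292 without the low-count filter, 364 with only the libraries of the comparison, 3297 with limma-voom and 3 with replicates 1 and 2 only, and the 1189 lower genes became 774 with only the libraries of the comparison, 2888 with limma-voom and 17 with replicates 1 and 2 only. Leaving out 1 library gave 244 to 853 higher and 693 to 1591 lower genes against P day 4; the causes were not tested. Without a composition factor the median log2 fold change of all genes rose from 0.02 to 0.10, and 4914 genes were higher and 3216 lower. Klk7 turned to 0.16 with replicates 1 and 2 only. Timp2, not called, ranged from -0.42 to 0.03 when 1 library was left out and turned to 0.03 without unwounded replicate 2, 0.05 with the replicate block and 0.34 with replicates 1 and 2 only. Cpa3 ranged from -0.05 to 1.06 and Tpsb2 from -0.22 to 0.50 when 1 library was left out. Cpa3 turned to -0.05 without P day 2 replicate 1, -1.71 with replicates 3 to 5 only and -0.89 with limma-voom, and Tpsb2 to -0.22, -1.02 and -0.67 under the same 3 settings. Of 238 named genes called, 211 kept the call under every setting run, and with replicates 1 and 2 only 22 lost it. Of 136 list counts, of rises or of falls, 35 moved by over 1.5 times with replicates 1 and 2 only. With replicates 3 to 5 only 24 did. Same-numbered replicates did not deviate together beyond the preset 0.1 in every pair (correlations 0.034, 0.072 and 0.188). Replicates of different numbers had correlations of -0.188 to 0.165. With 3 unwounded libraries these values cannot tell whether the numbers pair samples, and the numbers were not used as pairs. With the replicate block, which shares only the number, 4913 genes were higher and 4374 lower against unwounded skin (1927 and 941 beyond 2-fold), and 720 and 1383 against P day 4. Depth limits genes near 0 in unwounded skin or in the wounds, where few counts set the size of a difference.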
